A study of Mus musculus with 24 samples.

Results

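Embryoid bodies grown from Smad2 knockout mouse embryonic stem cells were compared with embryoid bodies grown from Smad3 knockout cells, both at day 4 of differentiation. The comparison was taken from the sample labels and holds 4 of the 24 samples of the series: 2 RNA-seq libraries of the Smad2 knockout (genotype Smad2-/-) and 2 of the Smad3 knockout (genotype Smad3-/-). The other 6 RNA-seq libraries were 2 of a Smad2/3 double knockout at day 4, 2 of wild-type (WT) embryoid bodies at day 4 and 2 of WT stem cells at day 0, and they serve as background here. The 14 chromatin immunoprecipitation samples were not analysed here.

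All cells belonged to E14Tg2a.IV, a mouse embryonic stem cell line of the E14 family, and embryoid bodies are free-floating aggregates in which such cells differentiate in medium without LIF, the cytokine that keeps them self-renewing. Day 0 cells were pluripotent. The names of the deposited tables show 1 line for each knockout, so what belongs to a genotype and what belongs to a line cannot be told apart. The labels name no separate cultures within a group. A p-value here therefore measures how far these particular samples spread, which may be technical. In whole embryoid bodies, fewer cells of a type and less RNA per cell cannot be told apart.

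SMAD2 and SMAD3 are the receptor-activated SMAD proteins of Nodal, Activin and TGF-beta signalling. After phosphorylation by type I receptors they pair with SMAD4, enter the nucleus and act with partners such as FOXH1 and EOMES on target genes. In the early mouse embryo Nodal signalling through these proteins is known for setting up the primitive streak, the organizer and the endoderm, and for maintaining the epiblast. SMAD3 binds the short SMAD box in DNA directly, whereas the main SMAD2 isoform carries an insert that hinders direct binding.

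The DNA upstream of 5 genes is shown because their RNA carries large contrasts described below: the organizer genes Lhx1 and Cer1, and the yolk sac genes Apob, Afp and Fgb. Each line gives the 250 bases before the start annotated in RefSeq, 5′ to 3′ on the gene's strand, on GRCm38.p6. Gene positions given below are from GENCODE, and its starts can differ. The Apob window thus runs past the GENCODE start and the Afp window stops short of it. Capitals mark CAGAC (the SMAD box) in Lhx1 and Cer1, TATAAA in Apob and Afp, GTTAAT (a core run of the HNF1 site) in Afp, and the same run read from the opposite strand, ATTAAC, in Fgb. The windows lie at chr11:84525535-84525784 (minus strand) for Lhx1, chr4:82885152-82885401 (minus) for Cer1, chr12:7977427-7977676 (plus) for Apob, chr5:90490464-90490713 (plus) for Afp and chr3:83049864-83050113 (minus) for Fgb.
Lhx1: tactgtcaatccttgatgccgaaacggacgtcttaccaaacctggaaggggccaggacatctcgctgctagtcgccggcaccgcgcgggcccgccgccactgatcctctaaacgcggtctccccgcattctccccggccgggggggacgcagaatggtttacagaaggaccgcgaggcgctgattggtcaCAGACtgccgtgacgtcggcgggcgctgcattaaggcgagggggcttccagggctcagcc
Cer1: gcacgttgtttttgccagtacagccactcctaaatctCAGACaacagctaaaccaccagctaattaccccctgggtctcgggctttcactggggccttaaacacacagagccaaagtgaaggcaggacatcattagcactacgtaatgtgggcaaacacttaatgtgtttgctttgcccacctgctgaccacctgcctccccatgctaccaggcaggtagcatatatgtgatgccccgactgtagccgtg
Apob: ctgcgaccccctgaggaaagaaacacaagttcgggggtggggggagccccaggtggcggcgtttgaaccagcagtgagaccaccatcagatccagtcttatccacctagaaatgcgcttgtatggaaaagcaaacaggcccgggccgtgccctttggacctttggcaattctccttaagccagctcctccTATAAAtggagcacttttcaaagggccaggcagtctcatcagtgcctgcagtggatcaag
Afp: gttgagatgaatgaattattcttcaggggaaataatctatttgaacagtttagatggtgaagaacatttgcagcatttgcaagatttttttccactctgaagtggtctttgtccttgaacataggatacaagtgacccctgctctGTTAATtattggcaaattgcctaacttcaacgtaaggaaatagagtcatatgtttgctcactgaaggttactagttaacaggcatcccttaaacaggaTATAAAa
Fgb: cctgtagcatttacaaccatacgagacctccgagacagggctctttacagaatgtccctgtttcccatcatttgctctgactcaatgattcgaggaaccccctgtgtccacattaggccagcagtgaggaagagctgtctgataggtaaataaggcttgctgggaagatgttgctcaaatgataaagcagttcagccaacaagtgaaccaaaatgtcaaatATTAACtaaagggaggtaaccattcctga

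Motifs were searched on both strands in the same 250 bases of 27025 promoters. CAGAC occurred in 42.1% of them, so a match such as those in Lhx1 and Cer1 is common. GTTAAT occurred in 6.52% and TATAAA in 12.97% of promoters. Of the 16 yolk sac genes listed here 13 had a promoter in the reference, and GTTAAT lay in 5 of them (Afp, Apoc2, Fga, Fgb and Serpina1a). Fgb also holds CAGAC on the opposite strand, which is not marked. AATNCACA, the FOXH1 motif, occurred in 3.24% of promoters and in 0 of the 11 organizer promoters available. These matches are letters in a window and do not show that a factor binds.

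The targeted genes were read first. Smad2 RNA had 19.2 and 20.4 CPM in Smad2 knockout libraries, against 38.3 and 39.3 CPM in Smad3 knockout libraries (log2 fold change -0.97 ± 0.18 SE, adjusted p = 0.00513), where CPM is the depth-scaled count over the normalised library total, and fold changes are Smad2 knockout over Smad3 knockout throughout. It was lower in both Smad2 knockout libraries, and the other groups had 22.2 and 22.7 CPM in double knockout and 49.9 and 38.3 CPM in WT day 4 libraries. Smad3 RNA had 30.8 and 31.004 CPM in Smad2 knockout libraries, against 49.7 and 48.7 CPM in Smad3 knockout libraries (log2 fold change -0.67 ± 0.16 SE, adjusted p = 0.0133). Smad3 was therefore higher, not lower, in the libraries labelled Smad3 knockout, and they also lay above 42.03 and 44.9 CPM in WT day 4 libraries. Deposited gene totals do not show which exons the alleles remove, so the Smad3 RNA level does not check that label. With the length offset described below, Smad3 was at 0.10 and not called.

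Depth was 35733249 to 53672980 expected counts per library over the 10 libraries, and 19470 genes had enough counts to be tested. A gene counts as called where its p, adjusted by the Benjamini-Hochberg method over all 19470, was under 0.05. Between the knockouts 6549 genes (33.6% of those tested) were called, 3057 (15.7%) higher and 3492 (17.9%) lower in Smad2 knockout. More than 2-fold changes made up 1822 of the higher and 2410 of the lower calls. The libraries of the knockouts did not overlap in 13919 genes, 71.5% of those tested. Of the calls, 6547 had the same sign in both replicate numbers. The calls rest on the same libraries and nearly fix that count, so it is not a replication. Against WT day 4, whose libraries both knockouts share as control, 6904 genes (35.5%) were called in Smad2 knockout and 108 (0.555%) in Smad3 knockout. Double knockout over WT day 4 had 4506 calls (23.1%), and WT day 4 over day 0 had 10139 (52.1%). Leaving out 1 Smad3 knockout library lowered the calls to 670 higher and 1228 lower (without replicate 1) or to 997 higher and 1654 lower (without replicate 2). Without replicate 1 or replicate 2 of Smad2 knockout the calls were 2079 higher and 2403 lower, or 2221 higher and 2674 lower. Of the genes named below, 67 lost their call without Smad3 knockout replicate 1, 51 without its replicate 2, 32 without Smad2 knockout replicate 1 and 19 without its replicate 2.

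Gene length moved with this contrast. The 83 cytosolic ribosomal protein genes, which are short, took 13.8 and 13.1% of counts in Smad2 knockout libraries, against 8.07 and 8.01% in Smad3 knockout libraries. They took 6.78 and 6.18% in double knockout, 5.79 and 7.07% in WT day 4 and 16.2 and 11.99% in WT day 0 libraries. Across the 19470 genes tested, the Spearman correlation of the log2 fold change with gene length was -0.49 for Smad2 over Smad3 knockout, as a description of libraries that share their genes. It was -0.50 for Smad2 knockout over WT day 4, -0.074 for Smad3 knockout over WT day 4 and 0.47 for WT day 4 over day 0. In the first of 10 equal bins, with the shortest transcripts (median 398 bases), the median log2 fold change of Smad2 over Smad3 knockout was 0.91, and in the bin of the longest (median 5748 bases) it was -0.90. A smooth offset for length and GC content per library brought these to 0.32 and -0.011. The part of length or library make-up in the gene results was not tested, and counts with that offset are given beside each list whose higher or lower calls moved by 3 or more genes, and beside some others.

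**Figure D1:**
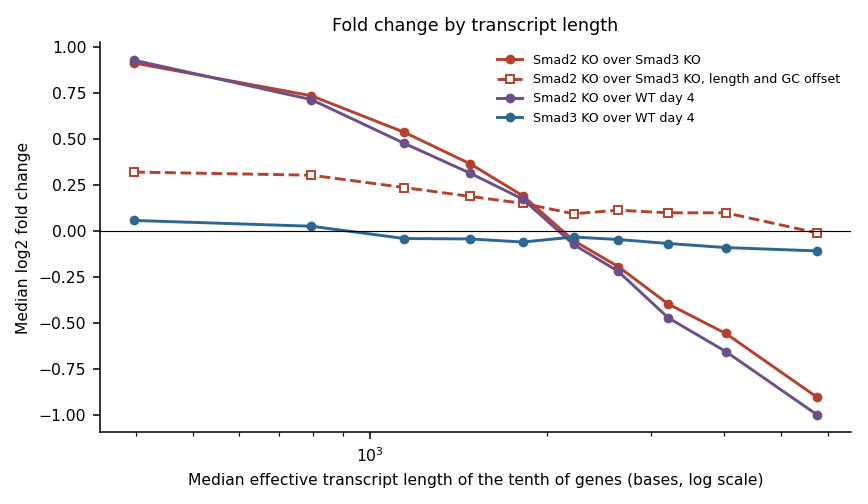
Median log2 fold change (vertical axis) in 10 equal bins of the tested genes ordered by transcript length (horizontal axis, bases, log scale). Lines show Smad2 over Smad3 knockout as tested and with the length and GC offset, Smad2 knockout over WT day 4 and Smad3 knockout over WT day 4. The line as tested runs from 0.91 in the bin of shortest transcripts to -0.90 in that of the longest.

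The counts of calls and the medians also differed with the scale and the model. The TPM settings changed more than the scale, since they used limma and kept 14328 genes by a TPM minimum. The median log2 fold change of all tested genes was -0.022 as tested, -0.35 with library totals in place of TMM factors, -0.57 on log2(TPM + 1), -0.68 on log2(TPM + 0.1), and 0.15 and 0.14 with the length and the length and GC offsets. Calls were 1571 higher and 5369 lower with library totals, 507 higher and 6377 lower on log2(TPM + 1), and 4470 higher and 2269 lower with the length and GC offset. Higher calls thus made up 46.7% of calls as tested, and 22.6%, 7.37% and 66.3% under those 3 settings. Directions of gene lists below were therefore also read relative to the all-gene median of each scaling. Of 44 lists, 33 had a median on the same side of it under all 6 scalings tried, and the 11 others are named where they are described.

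**Figure D2:**
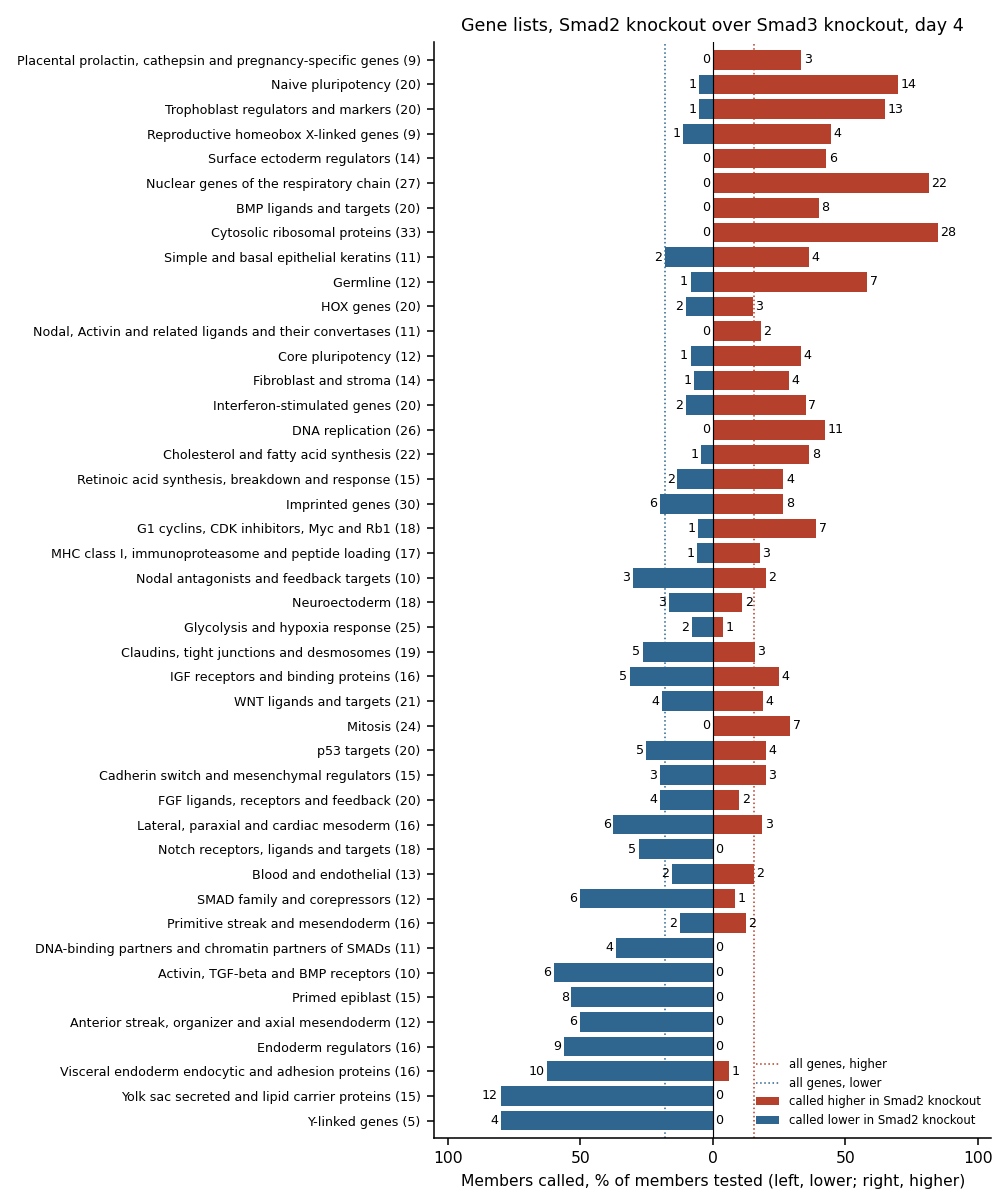
Share of tested members of each gene list called lower (left) or higher (right) in Smad2 knockout than Smad3 knockout, in percent, with the number of genes at each bar end and lists ordered by median log2 fold change. Dotted lines mark the shares over all tested genes, 17.9% lower and 15.7% higher. Y-linked, yolk sac and visceral endoderm lists stand at the low end, and placental, naive pluripotency and trophoblast lists at the high end.

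Genes of the yolk sac and its visceral endoderm were lower in Smad2 knockout. The visceral endoderm surrounds the epiblast, takes up maternal proteins and secretes the plasma proteins that the liver makes later. Of 15 tested genes for secreted and lipid carrier proteins, 0 were called higher and 12 called lower. The median of their log2 fold changes was -2.92 beside -0.022 for all genes tested. Their summed level was 481 and 864 CPM in Smad2 knockout, against 723 and 944 CPM in Smad3 knockout libraries. It was 452 and 217 CPM in double knockout, 548 and 935 CPM in WT day 4 and 839 and 898 CPM in WT day 0 libraries. Most of that sum was Apoe, a lipid carrier that stem cells also make, which was named after its values were seen. It had 447 and 832 CPM in Smad2 knockout libraries, against 418 and 650.1 CPM in Smad3 knockout libraries, which overlap, and was not called (log2 fold change 0.26 ± 0.56 SE, adjusted p = 0.746).

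Apob (chr12:7977648-8016835, plus strand), the structural apolipoprotein of chylomicrons and low-density lipoproteins, had 1.03 and 1.88 CPM in Smad2 knockout libraries, against 103 and 94.1 CPM in Smad3 knockout libraries (log2 fold change -6.06 ± 0.38 SE, adjusted p = 0.000266). Afp (chr5:90490737-90508907, plus strand), the fetal albumin relative alpha-fetoprotein, had 3.07 and 1.60 CPM in Smad2 knockout libraries, against 57.96 and 53.4 CPM in Smad3 knockout libraries (log2 fold change -4.58 ± 0.50 SE, adjusted p = 0.00123). Both genes stood far above Smad2 knockout in every Smad3 knockout library, and WT libraries had 199 and 133 CPM in WT day 4 for Apob and 46.5 and 38.4 CPM in WT day 4 for Afp. Mttp, the triglyceride transfer protein that loads apolipoprotein B with lipid, had 8.55 and 8.81 CPM in Smad2 knockout libraries, against 46.5 and 40.9 CPM in Smad3 knockout libraries (log2 fold change -2.33 ± 0.26 SE, adjusted p = 0.00123). The fibrinogen chain gene Fgb, whose promoter is printed above, had 0.159 and 0.128 CPM in Smad2 knockout libraries, against 2.15 and 2.05 CPM in Smad3 knockout libraries (log2 fold change -3.85 ± 0.42 SE, adjusted p = 0.00149). Fgb is shown for that promoter and was chosen after its values were seen. Counts for the list were 0 higher and 9 to 12 lower when either Smad2 or Smad3 knockout replicate was left out. Against WT day 4, which both contrasts share, the list had 0 higher and 10 lower in Smad2 knockout (15.4% and 20.1% of all genes) and 0 higher and 0 lower in Smad3 knockout (0.431% and 0.123%).

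Of 16 visceral endoderm genes for endocytosis and adhesion, 1 were called higher and 10 called lower (median -1.31). Dab2, the adaptor that couples megalin and cubilin to clathrin, had 21.8 and 18.8 CPM in Smad2 knockout libraries, against 182 and 174 CPM in Smad3 knockout libraries (log2 fold change -3.13 ± 0.27 SE, adjusted p = 0.000825). Cubn, which encodes the endocytic receptor cubilin, had 5.14 and 11.1 CPM in Smad2 knockout libraries, against 100.2 and 99.2 CPM in Smad3 knockout libraries (log2 fold change -3.61 ± 0.41 SE, adjusted p = 0.00133). WT day 4 libraries stood above both knockouts for Cubn, at 334 and 266 CPM, and the double knockout had 59.2 and 31.7 CPM. The lysosomal protease gene Ctsh had 8.55 and 6.53 CPM in Smad2 knockout libraries, against 44.3 and 44.6 CPM in Smad3 knockout libraries (log2 fold change -2.56 ± 0.23 SE, adjusted p = 0.000869). Fxyd3, a regulator of the sodium pump, went the other way at 1.25 and 0.918 CPM in Smad2 knockout libraries, against 0.244 and 0.173 CPM in Smad3 knockout libraries (log2 fold change 2.35 ± 0.45 SE, adjusted p = 0.0057).

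Endoderm regulators gave 0 called higher and 9 called lower among 16 tested genes (median -1.20). Gata6, a zinc finger factor that specifies primitive endoderm, had 1.93 and 1.34 CPM in Smad2 knockout libraries, against 9.59 and 10.1 CPM in Smad3 knockout libraries (log2 fold change -2.59 ± 0.28 SE, adjusted p = 0.00123). Gata4, its relative of endoderm and heart, had 4.87 and 2.58 CPM in Smad2 knockout libraries, against 24.8 and 27.5 CPM in Smad3 knockout libraries (log2 fold change -2.82 ± 0.31 SE, adjusted p = 0.00131). Hnf4a, a nuclear receptor needed for visceral endoderm function, had 1.40 and 2.30 CPM in Smad2 knockout libraries, against 14.1 and 13.9 CPM in Smad3 knockout libraries (log2 fold change -2.91 ± 0.35 SE, adjusted p = 0.00149). These 3 factors were thus lower in every Smad2 knockout library, and the double knockout had 10.7 and 7.45 CPM for Gata6 and 13.2 and 7.21 CPM for Hnf4a, above the Smad2 knockout libraries. Foxa2, the forkhead factor of endoderm and node, had 2.20 and 0.469 CPM in Smad2 knockout libraries, against 4.71 and 6.27 CPM in Smad3 knockout libraries (log2 fold change -2.06 ± 0.66 SE, adjusted p = 0.0386), and WT day 4 had 27.1 and 40.4 CPM. Sox17, the definitive endoderm factor, had 2.41 and 1.09 CPM in Smad2 knockout libraries, against 3.13 and 5.16 CPM in Smad3 knockout libraries and was not called (log2 fold change -1.25 ± 0.48 SE, adjusted p = 0.0729).

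Genes of trophoblast, the outer lineage that builds the placenta, were higher in Smad2 knockout. Of 20 tested trophoblast regulators and markers, 13 were called higher and 1 called lower (median 1.53). Their summed level was 5033 and 3767 CPM in Smad2 knockout, 1462 and 1594 CPM in Smad3 knockout, 9359.7 and 14343 CPM in double knockout, 1203 and 1264 CPM in WT day 4 and 902 and 1010.2 CPM in WT day 0 libraries. In the day 4 libraries most of the sum came from Peg10, Krt8 and Krt18. Peg10, an imprinted gene of retrotransposon origin needed for the placenta, was named after its values were seen and had 1887 and 1455 CPM in Smad2 knockout libraries, against 610.5 and 547 CPM in Smad3 knockout libraries (log2 fold change 1.53 ± 0.28 SE, adjusted p = 0.00466). On log2(TPM + 1) the list had 6 higher and 3 lower of 18, and without Smad3 knockout replicate 1 it had 6 higher and 0 lower with a median of 1.54, where 670 of all 20357 genes tested were called higher.

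Esx1, an X-linked homeobox gene of the placenta, had 28.5 and 22.5 CPM in Smad2 knockout libraries, against 3.64 and 4.05 CPM in Smad3 knockout libraries (log2 fold change 2.73 ± 0.28 SE, adjusted p = 0.00103). Tfap2c, the AP-2 factor that trophoblast and germ cells share, had 61.2 and 84.4 CPM in Smad2 knockout libraries, against 24.4 and 26.4 CPM in Smad3 knockout libraries (log2 fold change 1.52 ± 0.19 SE, adjusted p = 0.00166). Both were higher in every Smad2 knockout library, and the double knockout stood higher still, at 48.4 and 59.3 CPM for Esx1 and 172 and 169 CPM for Tfap2c. Hand1, a helix-loop-helix factor of giant cells and of lateral mesoderm, had 53.5 and 39.8 CPM in Smad2 knockout libraries, against 9.73 and 13.99 CPM in Smad3 knockout libraries (log2 fold change 1.98 ± 0.37 SE, adjusted p = 0.00499). Gata2, a regulator of trophoblast and blood genes, had 21.6 and 9.60 CPM in Smad2 knockout libraries, against 2.49 and 3.38 CPM in Smad3 knockout libraries (log2 fold change 2.41 ± 0.43 SE, adjusted p = 0.0044). Its double knockout libraries had 109 and 125 CPM, well above both single knockouts. Gata3, its trophoblast partner, had 9.72 and 4.40 CPM in Smad2 knockout libraries, against 3.49 and 3.75 CPM in Smad3 knockout libraries and was not called (log2 fold change 0.96 ± 0.35 SE, adjusted p = 0.0607). The placental homeobox gene Dlx3 had 14.99 and 11.7 CPM in Smad2 knockout libraries, against 6.04 and 7.50 CPM in Smad3 knockout libraries (log2 fold change 0.98 ± 0.25 SE, adjusted p = 0.0179). Over WT day 4, Hand1, Gata3 and Dlx3 were called higher in Smad3 knockout too (log2 fold change 3.36, 2.34 and 2.22). In Smad2 knockout they were further above WT day 4 (5.34, 3.30 and 3.20). WT day 4 had 0.617 and 1.69 CPM for Hand1 and 1.10 and 1.81 CPM for Dlx3. Cdx2, the caudal factor that trophoblast stem cells and the posterior embryo both use, had 31.4 and 4.44 CPM in Smad2 knockout libraries, against 1.67 and 1.75 CPM in Smad3 knockout libraries (log2 fold change 3.39 ± 0.75 SE, adjusted p = 0.00944). Its Smad2 knockout libraries lay far apart, and both stood above the 0.983 and 1.62 CPM in WT day 4 libraries. Eomes, shared by trophoblast stem cells and the streak, was lower, with 49.3 and 10.9 CPM in Smad2 knockout libraries, against 87.1 and 93.7 CPM in Smad3 knockout libraries (log2 fold change -1.59 ± 0.52 SE, adjusted p = 0.0409).

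Keratins, the intermediate filament proteins of epithelia, gave 4 called higher and 2 called lower of 11 tested (median 1.03). Krt8 had 1483 and 959.8 CPM in Smad2 knockout libraries, against 251 and 341 CPM in Smad3 knockout libraries (log2 fold change 2.04 ± 0.38 SE, adjusted p = 0.00513), and its partner Krt18 had 1093 and 805 CPM in Smad2 knockout libraries, against 354 and 432 CPM in Smad3 knockout libraries (log2 fold change 1.27 ± 0.28 SE, adjusted p = 0.00916). Krt7, a keratin of simple and trophoblast epithelia, had 175 and 119 CPM in Smad2 knockout libraries, against 19.6 and 25.3 CPM in Smad3 knockout libraries (log2 fold change 2.71 ± 0.34 SE, adjusted p = 0.00168). Krt7 was 4.05 and 8.70 CPM in WT day 4, so both knockouts lay above WT, and the Smad2 knockout lay further above. Krt23 had 1 count over the Smad2 knockout libraries against 20 over the Smad3 knockout libraries (ratio of Smad3 to Smad2 knockout 19.8, 95% counting interval 3.16 to 820.0, adjusted p = 0.0123).

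The Rhox genes are a cluster of homeobox genes on the X chromosome expressed in placenta and gonads. Of 9 tested members, 4 were called higher and 1 called lower, with a median of 1.26, or 1.08 with genes of 3 or fewer counts at their bound. Rhox6 (chrX:37826910-37829857, plus strand) had 124 and 67.2 CPM in Smad2 knockout libraries, against 7.82 and 7.53 CPM in Smad3 knockout libraries (log2 fold change 3.64 ± 0.35 SE, adjusted p = 0.000975). Rhox9 (chrX:37899097-37901770, minus strand) had 71.1 and 39.8 CPM in Smad2 knockout libraries, against 4.31 and 4.32 CPM in Smad3 knockout libraries (log2 fold change 3.68 ± 0.34 SE, adjusted p = 0.000886). Double knockout libraries were higher still, with 190.2 and 259.8 CPM in double knockout for Rhox6, and WT day 4 had 1.74 and 2.09 CPM. Rhox5, the founding member of the cluster, had 24.97 and 46.6 CPM in Smad2 knockout libraries, against 20.3 and 18.4 CPM in Smad3 knockout libraries (log2 fold change 0.89 ± 0.28 SE, adjusted p = 0.0355). Rhox2a went the other way, with 0.185 and 0.256 CPM in Smad2 knockout libraries, against 0.711 and 0.839 CPM in Smad3 knockout libraries (log2 fold change -1.79 ± 0.50 SE, adjusted p = 0.0238). Rhox genes are near copies of each other, and how the reads were divided among them is uncertain.

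Rodent-specific placental families, the prolactin and cathepsin clusters, had few reads. The 9 tested members gave 3 called higher and 0 called lower, with a median of 3.18 or 2.37 at bounds, and 0 were called without Smad2 knockout replicate 1. Prl2c3 (proliferin), with 54 counts over the Smad2 knockout libraries against 0 over the Smad3 knockout libraries, was at least 18.2-fold higher when the empty group is set at 3 counts. Tpbpa, a spongiotrophoblast marker, was at least 6.07-fold higher, with 18 counts over the Smad2 knockout libraries against 0 over the Smad3 knockout libraries. The placental cathepsin gene Ctsj had 37 counts over the Smad2 knockout libraries against 1 over the Smad3 knockout libraries (ratio 37.4, 95% counting interval 6.31 to 1517). Adjusted p was 0.0213 for Prl2c3, 0.04 for Tpbpa and 0.0183 for Ctsj. Replicate 1 of Smad2 knockout held most of the reads in each, with 0.768 CPM beside 0.171 CPM in replicate 2 for Ctsj.

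The surface ectoderm is the future epidermis. Its list shares Dlx3, Tfap2a, Gata3, Krt8 and Krt18 with the trophoblast list, so the 2 lists are not separate results. Of 14 tested regulators and keratins of the surface ectoderm, 6 were called higher and 0 called lower (median 1.17), and 10 higher and 0 lower with the length and GC offset. Krt8, Krt18 and Dlx3, described above, are among the higher calls. On log2(TPM + 1) the list had 1 higher and 0 lower of 11, with a median of 0.049 beside -0.57 for all genes. Msx2, a homeobox target of BMP signalling, had 26.9 and 10.3 CPM in Smad2 knockout libraries, against 5.35 and 5.85 CPM in Smad3 knockout libraries (log2 fold change 1.73 ± 0.39 SE, adjusted p = 0.0103). Without Smad2 knockout replicate 1 it had 2 higher and 1 lower (median 0.83), and without replicate 2 11 higher and 0 lower (median 1.59). Without Smad3 knockout replicate 1 it had 0 higher and 0 lower with a median of 1.02, where 670 of all 20357 genes tested were called higher.

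**Figure D3:**
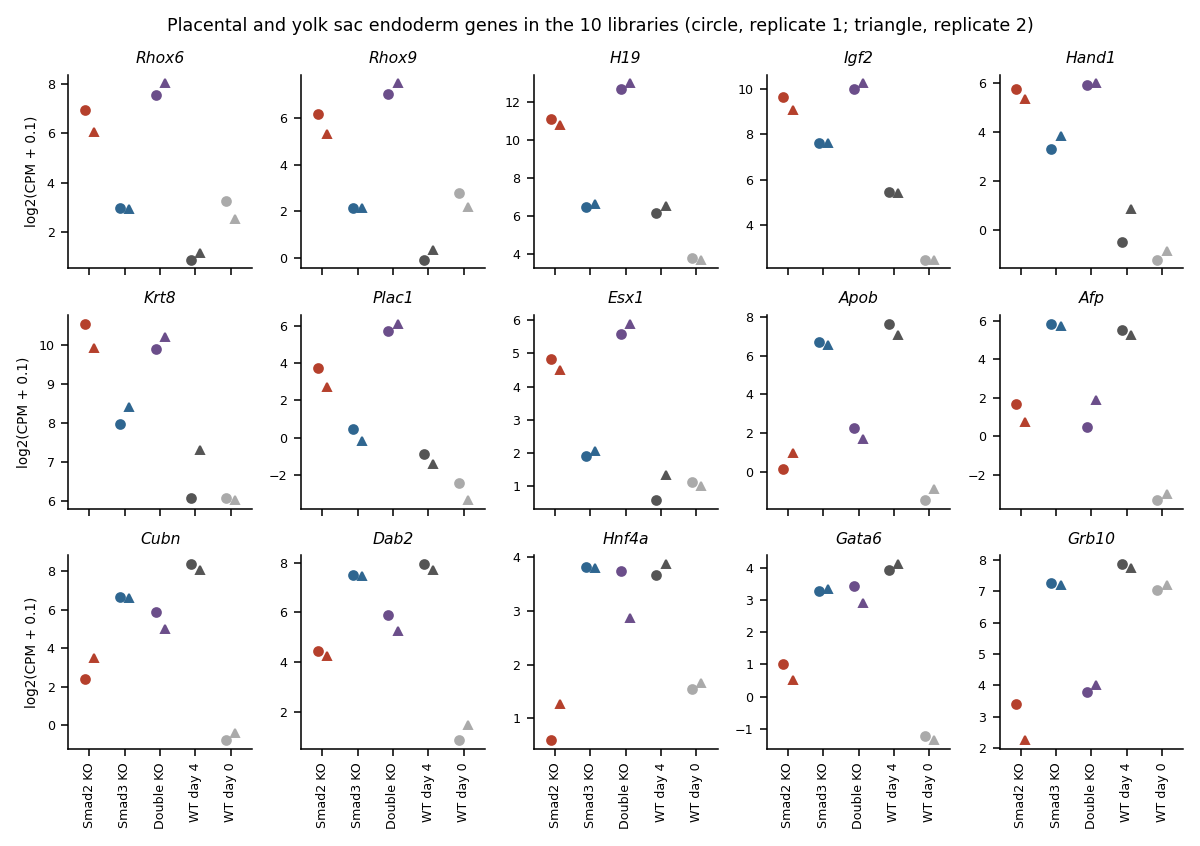
Level of 15 genes as log2(CPM + 0.1) in each library of Smad2 knockout, Smad3 knockout, double knockout, WT day 4 and WT day 0, with circles for replicate 1 and triangles for replicate 2. Rhox6, H19 and Krt8 stand higher in Smad2 than Smad3 knockout libraries, and Apob, Cubn and Grb10 lower.

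Imprinted genes, expressed from 1 parental copy, gave 8 called higher and 6 called lower of 30 tested. H19 (chr7:142575529-142578143, minus strand), the maternally expressed long noncoding RNA of a fetal growth locus, had 2213 and 1782 CPM in Smad2 knockout libraries, against 90.6 and 99.7 CPM in Smad3 knockout libraries (log2 fold change 4.39 ± 0.24 SE, adjusted p = 0.000232). Its neighbour Igf2 (chr7:142650766-142666816, minus strand), the paternally expressed insulin-like growth factor, had 818 and 538 CPM in Smad2 knockout libraries, against 198 and 198 CPM in Smad3 knockout libraries (log2 fold change 1.77 ± 0.21 SE, adjusted p = 0.00149). Both were highest in the double knockout, with 6579 and 8104 CPM for H19 and 1051 and 1229.6 CPM for Igf2. WT day 4 had 72.5 and 94.7 CPM for H19 and 44.1 and 42.3 CPM for Igf2. Smad3 knockout was thus near WT for H19, whereas Igf2 was called higher in Smad3 knockout than in WT day 4 (log2 fold change 2.20). Mest, a paternally expressed hydrolase-fold gene, had 62.1 and 55.8 CPM in Smad2 knockout libraries, against 10.7 and 8.98 CPM in Smad3 knockout libraries (log2 fold change 2.58 ± 0.26 SE, adjusted p = 0.00103). Nnat, which encodes the membrane proteolipid neuronatin, had 107 and 46.7 CPM in Smad2 knockout libraries, against 6.15 and 4.96 CPM in Smad3 knockout libraries (log2 fold change 3.79 ± 0.46 SE, adjusted p = 0.00157). Grb10, an adaptor that restrains insulin and IGF receptors, was lower, with 10.5 and 4.67 CPM in Smad2 knockout libraries, against 154 and 148 CPM in Smad3 knockout libraries (log2 fold change -4.32 ± 0.34 SE, adjusted p = 0.000584). Smad3 knockout was much nearer to WT for Grb10 than Smad2 knockout was: the double knockout had 13.8 and 15.9 CPM and WT had 233 and 214 CPM in WT day 4 libraries. With the length and GC offset the list had 13 higher and 3 lower.

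Genes of insulin-like growth factor signalling moved both ways, with 4 called higher and 5 called lower of 16 tested (median 0.017, which changes side of the all-gene median on the TPM scales), and 5 higher and 2 lower with the length and GC offset. Igf1r, the main receptor, had 52.1 and 51.9 CPM in Smad2 knockout libraries, against 142 and 148 CPM in Smad3 knockout libraries (log2 fold change -1.48 ± 0.19 SE, adjusted p = 0.00173). Igf2r, the receptor that clears IGF2, had 41.4 and 71.8 CPM in Smad2 knockout libraries, against 165 and 161 CPM in Smad3 knockout libraries (log2 fold change -1.53 ± 0.28 SE, adjusted p = 0.00469). Both receptors were lower in every Smad2 knockout library. Igf2bp3, an oncofetal RNA-binding protein that takes Igf2 mRNA as a target, had 40.9 and 48.2 CPM in Smad2 knockout libraries, against 108 and 104 CPM in Smad3 knockout libraries (log2 fold change -1.25 ± 0.20 SE, adjusted p = 0.00303).

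The organizer list, genes of the node, prechordal plate and anterior signalling centres, had 0 called higher and 6 called lower of 12 tested members (median -0.99). Smad2 knockout replicate 1 was over 2-fold above replicate 2 in 7 of the 12, and over 8-fold above it for Lhx1. The median was -1.555 without Smad2 knockout replicate 1 and -0.92 without its replicate 2, over 13 tested members. It was -1.17 and -0.60 without Smad3 knockout replicate 1 and replicate 2. Lhx1, the LIM homeobox factor of the organizer, had 1.59 and 0.0854 CPM in Smad2 knockout libraries, against 27.6 and 33.7 CPM in Smad3 knockout libraries (log2 fold change -5.24 ± 0.85 SE, adjusted p = 0.0039). Cer1, a secreted antagonist of Nodal, BMP and WNT, had 2 counts over the Smad2 knockout libraries against 252 over the Smad3 knockout libraries, a ratio of Smad3 to Smad2 knockout of 125, 95% counting interval 34.1 to 1035 (adjusted p = 0.000869). Per library Cer1 was 0 and 0.0427 CPM in Smad2 knockout, 3.13 and 2.74 CPM in Smad3 knockout and 23.6 and 23.4 CPM in WT day 4. Both knockouts thus lay under WT for Cer1, and the Smad2 knockout had almost no reads. Otx2, the head and epiblast homeobox gene, had 58.5 and 81.6 CPM in Smad2 knockout libraries, against 157 and 158 CPM in Smad3 knockout libraries (log2 fold change -1.17 ± 0.20 SE, adjusted p = 0.00359). Cyp26a1, which degrades retinoic acid, had 16.8 and 4.80 CPM in Smad2 knockout libraries, against 33.2 and 40.6 CPM in Smad3 knockout libraries (log2 fold change -1.78 ± 0.45 SE, adjusted p = 0.0164). Gsc, the organizer homeobox gene, had 2.01 and 0.832 CPM in Smad2 knockout libraries, against 1.95 and 2.96 CPM in Smad3 knockout libraries, libraries that overlap, and was not called (log2 fold change -0.80 ± 0.71 SE, adjusted p = 0.409). Against the shared WT day 4 libraries, the list had 0 higher and 10 lower in Smad2 knockout and 0 higher and 1 lower in Smad3 knockout.

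Primitive streak genes split the 2 Smad2 knockout libraries. Of 16 tested, 2 were called higher and 2 called lower (median -0.72), so 25.0% were called, beside 33.6% of all tested genes. Replicate 1 was over 2-fold above replicate 2 of Smad2 knockout in 15 of 16. T, the founding T-box factor brachyury, had 74.3 and 0.79 CPM in Smad2 knockout libraries, against 56.9 and 64.6 CPM in Smad3 knockout libraries (log2 fold change -0.70, adjusted p = 0.67). Mixl1, a homeobox factor of mesendoderm, had 22.6 and 0.0854 CPM in Smad2 knockout libraries, against 28.1 and 29.5 CPM in Smad3 knockout libraries (log2 fold change -1.35, adjusted p = 0.417). In both, Smad2 knockout replicate 1 was near Smad3 knockout and replicate 2 near 0. Mesp1, which marks nascent cardiac mesoderm, had 6.30 and 0.0854 CPM in Smad2 knockout libraries, against 4.71 and 9.33 CPM in Smad3 knockout libraries (log2 fold change -1.15, adjusted p = 0.463). Evx1, a posterior streak homeobox gene, had 12.6 and 0.427 CPM in Smad2 knockout libraries, against 6.26 and 9.82 CPM in Smad3 knockout libraries (log2 fold change -0.31, adjusted p = 0.836; 0.011 with the length offset). Fgf8, a streak growth factor, had 40.4 and 2.07 CPM in Smad2 knockout libraries, against 9.42 and 19.9 CPM in Smad3 knockout libraries (log2 fold change 0.53, adjusted p = 0.709), and was at -1.29 on log2(TPM + 1). These 5 genes show the same split, and 0 of them were called. Without replicate 1 of Smad2 knockout the list had 1 higher and 11 lower (median -2.94), and without replicate 2 3 higher and 1 lower (median 0.25).

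Other genes that differed over 8-fold between the 2 libraries of a knockout followed. Msgn1, a presomitic mesoderm factor, had 1.56 and 0.0213 CPM in Smad2 knockout libraries, against 0.489 and 0.79 CPM in Smad3 knockout libraries (log2 fold change 0.29, adjusted p = 0.864). The WNT ligand gene Wnt3, needed for streak formation, had 10.6 and 0.939 CPM in Smad2 knockout libraries, against 9.22 and 13.03 CPM in Smad3 knockout libraries (log2 fold change -0.96, adjusted p = 0.393). Wnt3a, its paralogue of the posterior streak, had 4.05 and 0.192 CPM in Smad2 knockout libraries, against 0.555 and 0.494 CPM in Smad3 knockout libraries (log2 fold change 2.00, adjusted p = 0.151). All 3 again had their highest Smad2 knockout value in replicate 1. Wnt8a, another streak ligand, had 11.6 and 1.39 CPM in Smad2 knockout libraries, against 8.68 and 9.85 CPM in Smad3 knockout libraries (log2 fold change -0.52, adjusted p = 0.602). Sp5, a direct WNT target, had 16.7 and 0.363 CPM in Smad2 knockout libraries, against 9.62 and 18.9 CPM in Smad3 knockout libraries (log2 fold change -0.75, adjusted p = 0.63). Rspo3, a secreted amplifier of WNT signalling, had 11.02 and 0.171 CPM in Smad2 knockout libraries, against 5.62 and 5.03 CPM in Smad3 knockout libraries (log2 fold change 0.064, adjusted p = 0.97). None of these passed the test, and the sign of Msgn1 and Rspo3 changed with the replicate block or the name series as a term. Fst, the Activin-binding protein follistatin, had 39.2 and 1.98 CPM in Smad2 knockout libraries, against 52.2 and 43.9 CPM in Smad3 knockout libraries (log2 fold change -1.23, adjusted p = 0.309). Msx1, a BMP target and paralogue of Msx2, had 20.3 and 1.45 CPM in Smad2 knockout libraries, against 5.82 and 8.88 CPM in Smad3 knockout libraries (log2 fold change 0.56, adjusted p = 0.644; -0.71 on log2(TPM + 1)). Bmp5, a BMP ligand, had 0.397 and 0 CPM in Smad2 knockout libraries, against 0.333 and 0.296 CPM in Smad3 knockout libraries (log2 fold change -0.73, adjusted p = 0.644). Cdh5, the endothelial VE-cadherin, had 1.99 and 0.128 CPM in Smad2 knockout libraries, against 0.355 and 0.148 CPM in Smad3 knockout libraries (log2 fold change 2.01, adjusted p = 0.142), far under the 42.8 and 34.3 CPM in double knockout libraries.

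In a few genes the split ran the other way or lay in Smad3 knockout. Grem1, a secreted BMP antagonist, had 0.132 and 3.12 CPM in Smad2 knockout libraries, against 0.178 and 0.074 CPM in Smad3 knockout libraries (log2 fold change 3.66, adjusted p = 0.0655). Gdf1, a Nodal partner ligand, had 2.22 and 7.21 CPM in Smad2 knockout libraries, against 0 and 1.53 CPM in Smad3 knockout libraries (log2 fold change 2.64, adjusted p = 0.285). Here replicate 2 was the higher one in Smad2 knockout for both, and the Smad3 knockout libraries of Gdf1 were at 0 and 1.53 CPM. Neither was called.

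**Figure D4:**
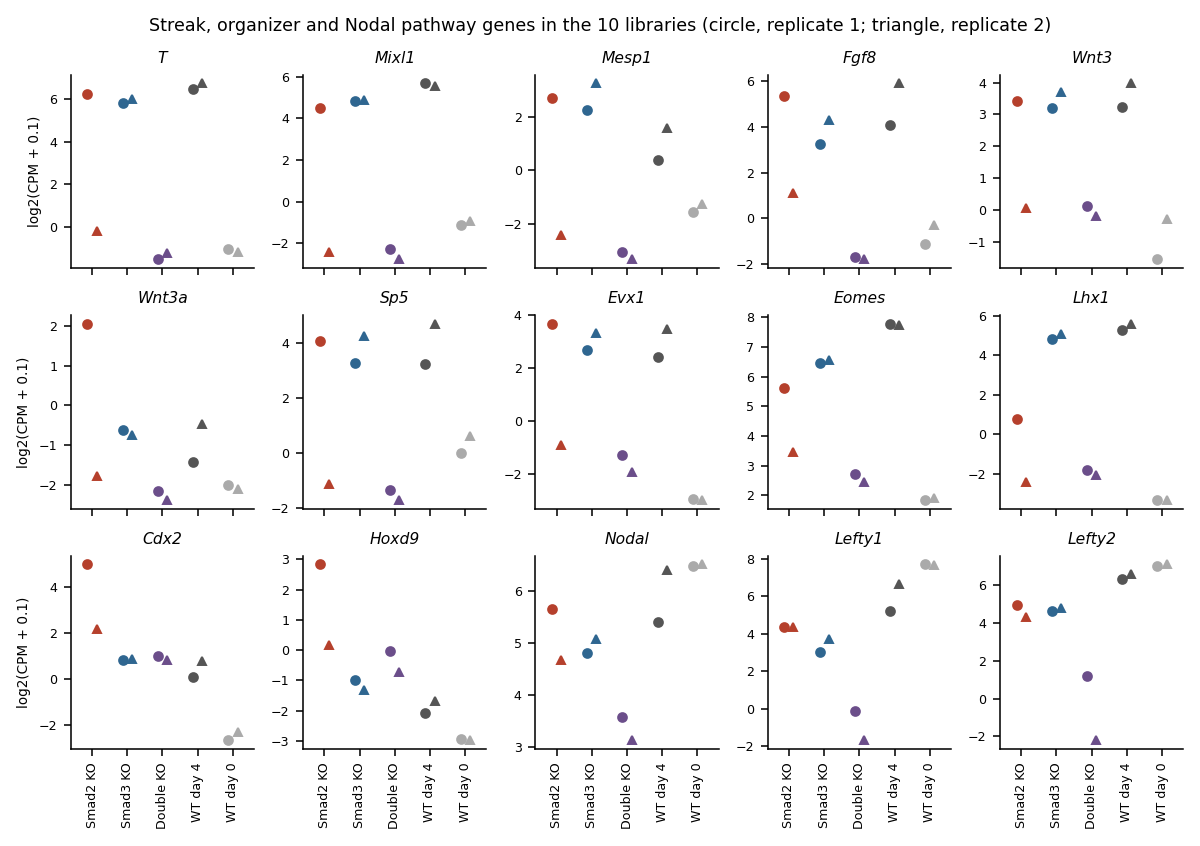
Level of 15 streak, organizer and Nodal target genes as log2(CPM + 0.1) in each library of the 5 groups, with circles for replicate 1 and triangles for replicate 2. In Smad2 knockout, replicate 1 of T and Mixl1 stands near the Smad3 knockout libraries and replicate 2 near the WT day 0 libraries.

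Cdx1 and Axin2 were called within the streak and WNT lists. Cdx1, the paralogue of Cdx2, had 4.37 and 1.09 CPM in Smad2 knockout libraries, against 0.355 and 0.247 CPM in Smad3 knockout libraries (log2 fold change 3.16 ± 0.75 SE, adjusted p = 0.0124). Axin2, the negative feedback target that WNT signalling induces, had 15.99 and 6.64 CPM in Smad2 knockout libraries, against 27.1 and 33.7 CPM in Smad3 knockout libraries (log2 fold change -1.43 ± 0.40 SE, adjusted p = 0.0238). Of 21 tested WNT pathway genes, 4 were called higher and 4 called lower (median 0.017; it lies under the all-gene median on the TPM scales and with the length and GC offset). Notum, a secreted deacylase that inactivates WNT ligands, had 7.34 and 3.52 CPM in Smad2 knockout libraries, against 0.755 and 0.987 CPM in Smad3 knockout libraries (log2 fold change 2.64 ± 0.44 SE, adjusted p = 0.00354). Wnt7b, a ligand of chorion and epithelia, had 24.3 and 30.4 CPM in Smad2 knockout libraries, against 7.08 and 9.50 CPM in Smad3 knockout libraries (log2 fold change 1.72 ± 0.23 SE, adjusted p = 0.0018). Both were higher in every Smad2 knockout library. Znrf3, a ubiquitin ligase that removes WNT receptors, had 10.5 and 12.01 CPM in Smad2 knockout libraries, against 18.01 and 17.7 CPM in Smad3 knockout libraries (log2 fold change -0.67 ± 0.18 SE, adjusted p = 0.0212), and was at 0.16 with the length offset. Without replicate 1 or 2 of Smad2 knockout the WNT list had 3 higher and 7 lower, or 9 higher and 2 lower.

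The HOX clusters, which pattern the body axis, gave 3 called higher and 2 called lower of 20 tested genes at low levels, and the median (0.71) changes side on log2(TPM + 0.1). Calls made up 25.0% of the list, beside 33.6% of all tested genes. Hoxd9 had 7.02 and 1.02 CPM in Smad2 knockout libraries, against 0.4 and 0.296 CPM in Smad3 knockout libraries (log2 fold change 3.51 ± 0.81 SE, adjusted p = 0.0111). Hoxc9 had 1.01 and 0.491 CPM in Smad2 knockout libraries, against 0 and 0.0987 CPM in Smad3 knockout libraries (log2 fold change 3.89 ± 1.10 SE, adjusted p = 0.0251), and Hoxc8 had 71 counts over the Smad2 knockout libraries against 3 over the Smad3 knockout libraries (ratio 23.9, 95% counting interval 7.86 to 119, adjusted p = 0.00602). Hoxd1 went the other way, with 1.25 and 0.363 CPM in Smad2 knockout libraries, against 2.67 and 3.31 CPM in Smad3 knockout libraries (log2 fold change -1.91 ± 0.57 SE, adjusted p = 0.0303). Another 5 genes, of anterior groups, differed over 8-fold between the Smad2 knockout libraries, each with replicate 1 the higher. Hoxb1, first active in the hindbrain and posterior streak, had 4.48 and 0.0213 CPM in Smad2 knockout libraries, against 0.999 and 1.63 CPM in Smad3 knockout libraries (log2 fold change 0.76, adjusted p = 0.649). Hoxb2 had 1.83 and 0.064 CPM in Smad2 knockout libraries, against 0.577 and 0.592 CPM in Smad3 knockout libraries (log2 fold change 0.67, adjusted p = 0.631) and was at -0.037 with the name series as a term. Hoxb3 had 0.927 and 0.0427 CPM in Smad2 knockout libraries, against 0.511 and 0.37 CPM in Smad3 knockout libraries (log2 fold change 0.10, adjusted p = 0.949). Hoxb4 had 0.583 and 0 CPM in Smad2 knockout libraries, against 0.2 and 0.296 CPM in Smad3 knockout libraries (log2 fold change 0.18, adjusted p = 0.917). These HOXB genes were not called, and Hoxb3 and Hoxb4 change sign with library totals or the replicate block. Hoxa3 had 0.583 and 0.0213 CPM in Smad2 knockout libraries, against 0.0666 and 0.222 CPM in Smad3 knockout libraries (log2 fold change 1.02, adjusted p = 0.534). Without replicate 1 of Smad2 knockout the list had 1 higher and 5 lower, and without replicate 2 it had 8 higher and 0 lower of 24.

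Ligands of the Nodal and Activin family gave 2 called higher and 0 called lower of 11 tested (median 0.66). These 2 made up 18.2% of the list, near the 15.7% of all tested genes that were called higher. Gdf3, a ligand that pluripotent cells make, had 22.3 and 24.6 CPM in Smad2 knockout libraries, against 10.2 and 10.5 CPM in Smad3 knockout libraries (log2 fold change 1.18 ± 0.18 SE, adjusted p = 0.0028). Inhbb, the beta B subunit of Activin and inhibin, had 0.821 and 0.939 CPM in Smad2 knockout libraries, against 0.377 and 0.321 CPM in Smad3 knockout libraries (log2 fold change 1.33 ± 0.40 SE, adjusted p = 0.0316). Nodal itself had 50.6 and 25.3 CPM in Smad2 knockout libraries, against 27.9 and 33.7 CPM in Smad3 knockout libraries, which overlap, and was not called (log2 fold change 0.30 ± 0.38 SE, adjusted p = 0.565). Its feedback antagonist Lefty1 had 20.9 and 20.2 CPM in Smad2 knockout libraries, against 7.95 and 13.01 CPM in Smad3 knockout libraries (log2 fold change 0.97 ± 0.50 SE, adjusted p = 0.157), and Lefty2 had 30.3 and 19.5 CPM in Smad2 knockout libraries, against 24.3 and 27.6 CPM in Smad3 knockout libraries (log2 fold change -0.06 ± 0.64 SE, adjusted p = 0.952). Neither Lefty gene was called, and both knockouts stood apart from the double knockout, with 0.810 and 0.209 CPM for Lefty1. WT day 4 libraries of Lefty1 spread over 37.1 and 103 CPM. Nodal was at -0.54 on log2(TPM + 1), and Lefty2 at 0.076 with the length offset.

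Of 10 tested targets that feed back on the pathway, 2 were called higher and 3 called lower, and the median (0.21) changes side on the TPM and offset scales. Skil, the repressor SnoN, had 86.1 and 90.5 CPM in Smad2 knockout libraries, against 251 and 211 CPM in Smad3 knockout libraries (log2 fold change -1.39 ± 0.21 SE, adjusted p = 0.00267). Smurf2, a ubiquitin ligase for receptors and SMADs, had 41.3 and 43.1 CPM in Smad2 knockout libraries, against 82.4 and 72.6 CPM in Smad3 knockout libraries (log2 fold change -0.88 ± 0.18 SE, adjusted p = 0.00668). Both were lower in Smad2 knockout. Smad7, the inhibitory SMAD, had 31.8 and 20.997 CPM in Smad2 knockout libraries, against 14.7 and 15.3 CPM in Smad3 knockout libraries (log2 fold change 0.82 ± 0.22 SE, adjusted p = 0.0215), and was at -0.70 on log2(TPM + 1). Without replicate 1 of Smad2 knockout the list had 0 higher and 5 lower.

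Part of the genes for the machinery that carries the signal were lower as tested. The SMAD family with SKI and SKIL had 1 called higher and 6 called lower of 12 (median -0.55), but 4 higher and 1 lower with the length and GC offset. Smad4, the common partner, had 72.2 and 56.7 CPM in Smad2 knockout libraries, against 116 and 111 CPM in Smad3 knockout libraries (log2 fold change -0.82 ± 0.17 SE, adjusted p = 0.00711). Receptors had 0 called higher and 6 called lower of 10 tested (median -0.87), and 1 higher and 3 lower with that offset. Acvr2a, a type II Activin receptor, had 14.3 and 13.5 CPM in Smad2 knockout libraries, against 41.6 and 31.8 CPM in Smad3 knockout libraries (log2 fold change -1.40 ± 0.27 SE, adjusted p = 0.00582). Acvr1b, the type I receptor ALK4, had 21.9 and 30.3 CPM in Smad2 knockout libraries, against 46.2 and 49.3 CPM in Smad3 knockout libraries (log2 fold change -0.87 ± 0.22 SE, adjusted p = 0.0167). Tgfbr3, the co-receptor betaglycan, had 12.8 and 8.15 CPM in Smad2 knockout libraries, against 30.9 and 31.7 CPM in Smad3 knockout libraries (log2 fold change -1.58 ± 0.23 SE, adjusted p = 0.00225). Transcripts of Acvr2a, Acvr1b and Tgfbr3 average 4899, 4413 and 6004 bases, and length moved with the contrast as given above. Cofactors had 0 called higher and 4 called lower of 11 (median -0.82), and 2 higher and 3 lower with the offset. Ep300, the histone acetyltransferase p300, had 59.02 and 61.2 CPM in Smad2 knockout libraries, against 199 and 195 CPM in Smad3 knockout libraries (log2 fold change -1.71 ± 0.15 SE, adjusted p = 0.000869). Zfhx3, a large homeobox zinc finger protein, had 10.3 and 7.30 CPM in Smad2 knockout libraries, against 22.7 and 27.1 CPM in Smad3 knockout libraries (log2 fold change -1.502 ± 0.26 SE, adjusted p = 0.00386). Trim33, a chromatin reader that binds SMAD2 and SMAD3, had 70.9 and 98.4 CPM in Smad2 knockout libraries, against 181 and 153 CPM in Smad3 knockout libraries (log2 fold change -0.98 ± 0.24 SE, adjusted p = 0.0136).

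Genes of naive pluripotency, the ground state of the inner cell mass, were higher in Smad2 knockout. Of 20 tested, 14 were called higher and 1 called lower (median 1.98), against 17 higher and 1 lower with the length and GC offset and 9 higher and 1 lower on log2(TPM + 1). Dppa3 (Stella), a maternal and germ cell factor that protects imprints, had 21.2 and 84.3 CPM in Smad2 knockout libraries, against 3.38 and 2.59 CPM in Smad3 knockout libraries (log2 fold change 4.14 ± 0.57 SE, adjusted p = 0.00199). Zfp42 (Rex1), a zinc finger marker of the naive state, had 86.5 and 193 CPM in Smad2 knockout libraries, against 27.98 and 24.6 CPM in Smad3 knockout libraries (log2 fold change 2.41 ± 0.33 SE, adjusted p = 0.00198). In each the 2 Smad2 knockout libraries were over 2-fold apart, with replicate 2 the higher, and both lay above Smad3 knockout. Fgf4, the growth factor that primes stem cells to leave this state, had 57.1 and 108 CPM in Smad2 knockout libraries, against 19.2 and 18.5 CPM in Smad3 knockout libraries (log2 fold change 2.13 ± 0.27 SE, adjusted p = 0.00168). Fbxo15, an F-box target of OCT4, had 83.6 and 156 CPM in Smad2 knockout libraries, against 29.2 and 27.6 CPM in Smad3 knockout libraries (log2 fold change 2.08 ± 0.28 SE, adjusted p = 0.00186). WT day 4 libraries lay between the knockouts in these 4 genes, for example 60.5 and 58.8 CPM in WT day 4 for Zfp42. Klf4, a core reprogramming factor, had 13.3 and 25.9 CPM in Smad2 knockout libraries, against 6.55 and 9.01 CPM in Smad3 knockout libraries (log2 fold change 1.33 ± 0.36 SE, adjusted p = 0.0203). Stat3, the transducer of LIF, was lower, with 30.6 and 34.9 CPM in Smad2 knockout libraries, against 74.8 and 77.4 CPM in Smad3 knockout libraries (log2 fold change -1.22 ± 0.19 SE, adjusted p = 0.00307). In WT cells all 20 were called lower at day 4 than at day 0, where 23.2% of all genes were.

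Core pluripotency genes gave 4 called higher and 1 called lower of 12 (median 0.59), and 7 higher and 0 lower with the length and GC offset. Nanog, a homeobox gatekeeper of the network, had 199 and 186 CPM in Smad2 knockout libraries, against 119 and 107 CPM in Smad3 knockout libraries (log2 fold change 0.77 ± 0.17 SE, adjusted p = 0.00873). Sox2, the partner of OCT4, had 156 and 206 CPM in Smad2 knockout libraries, against 91.8 and 100.5 CPM in Smad3 knockout libraries (log2 fold change 0.92 ± 0.22 SE, adjusted p = 0.0128). Pou5f1, which encodes OCT4, had 790.0 and 857 CPM in Smad2 knockout libraries, against 408 and 510.2 CPM in Smad3 knockout libraries and was not called (log2 fold change 0.84 ± 0.30 SE, adjusted p = 0.0539). Dppa2 and Dppa4 encode a chromatin pair that activates early embryo genes. Dppa2 had 23.9 and 35.4 CPM in Smad2 knockout libraries, against 13.5 and 12.1 CPM in Smad3 knockout libraries (log2 fold change 1.22 ± 0.21 SE, adjusted p = 0.00424), and Dppa4 had 63.3 and 122 CPM in Smad2 knockout libraries, against 43.7 and 39.3 CPM in Smad3 knockout libraries (log2 fold change 1.16 ± 0.27 SE, adjusted p = 0.0116). On the TPM scale this list had 0 higher and 3 lower.

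Primed epiblast genes, which pluripotent cells switch on after implantation, had 0 called higher and 8 called lower of 15 tested (median -0.88). Fgf5, the classic epiblast growth factor, had 45.6 and 30.4 CPM in Smad2 knockout libraries, against 73.1 and 74.1 CPM in Smad3 knockout libraries (log2 fold change -0.95 ± 0.20 SE, adjusted p = 0.00836). Dnmt3b, the de novo DNA methyltransferase of the epiblast, had 276 and 352 CPM in Smad2 knockout libraries, against 624 and 616 CPM in Smad3 knockout libraries (log2 fold change -0.98 ± 0.18 SE, adjusted p = 0.00474). Both single knockouts lay under WT day 4, which had 1293 and 1453 CPM for Dnmt3b. Sall2, a zinc finger factor, had 48.4 and 48.4 CPM in Smad2 knockout libraries, against 91.98 and 94.3 CPM in Smad3 knockout libraries (log2 fold change -0.94 ± 0.16 SE, adjusted p = 0.00375). In the double knockout all 15 were called lower than WT day 4, where 12.3% of all genes were, and in WT cells 12 higher and 1 lower at day 4 than at day 0, where 28.9% of all genes were higher.

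**Figure D5:**
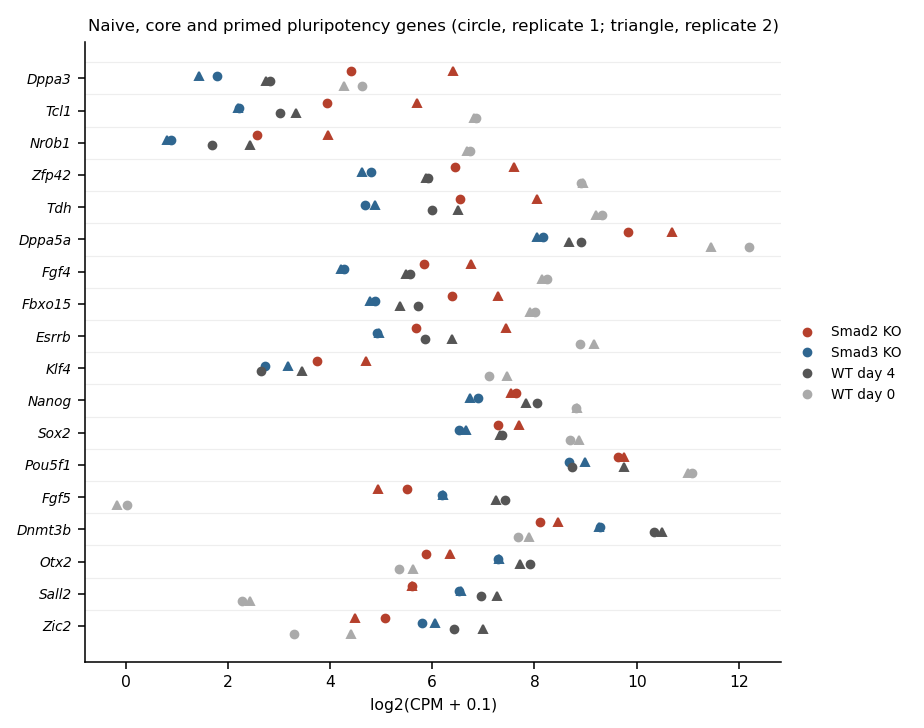
Level of 18 naive, core and primed pluripotency genes as log2(CPM + 0.1), one row per gene, with a dot per library of Smad2 knockout, Smad3 knockout, WT day 4 and WT day 0. Naive genes such as Dppa3, Zfp42 and Fgf4 stand higher in Smad2 than Smad3 knockout libraries, and the primed genes Fgf5, Dnmt3b, Otx2 and Sall2 lower.

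Germline genes had 7 called higher and 1 called lower of 12 tested (median 0.97); Dppa3 and Tfap2c, described above, are among them. Tex101, a germ cell surface protein, had 1.64 and 3.09 CPM in Smad2 knockout libraries, against 0.822 and 0.74 CPM in Smad3 knockout libraries (log2 fold change 1.60 ± 0.41 SE, adjusted p = 0.0174). Ddx4, the germ cell RNA helicase VASA, was lower, with 23.6 and 19.5 CPM in Smad2 knockout libraries, against 36.8 and 35.2 CPM in Smad3 knockout libraries (log2 fold change -0.74 ± 0.21 SE, adjusted p = 0.0261). Leaving out Smad3 knockout replicate 1 gave 2 higher and 0 lower with a median of 0.93, where higher calls over all genes fell to 670, against 3057 with all libraries.

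BMP ligands and targets gave 8 called higher and 0 called lower of 20 tested (median 1.09), and 12 higher and 0 lower with the length and GC offset. On log2(TPM + 1) the list had 1 higher and 3 lower of 17, with a median of 0.15 beside -0.57 for all genes. Bmp4, the ligand that induces mesoderm and germ cells, had 16.1 and 17.2 CPM in Smad2 knockout libraries, against 5.71 and 8.12 CPM in Smad3 knockout libraries (log2 fold change 1.27 ± 0.28 SE, adjusted p = 0.0093), but was at -0.11 on log2(TPM + 1). Id2, an inhibitor of differentiation that BMP signalling induces, had 50.9 and 33.9 CPM in Smad2 knockout libraries, against 18.7 and 19.6 CPM in Smad3 knockout libraries (log2 fold change 1.15 ± 0.21 SE, adjusted p = 0.00457). Gata2, Hand1 and Msx2 belong to the same list and are given above. Without Smad2 knockout replicate 1 the list had 8 higher and 4 lower, and without Smad3 knockout replicate 1 it had 1 higher and 0 lower with a median of 0.85, with the same 670 higher calls over all genes.

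FGF pathway genes had 2 called higher and 4 called lower of 20 (median -0.30), so 30.0% were called, beside 33.6% of all tested genes. Fgf10, a mesenchymal growth factor, had 1.83 and 0.405 CPM in Smad2 knockout libraries, against 10.7 and 8.91 CPM in Smad3 knockout libraries (log2 fold change -3.16 ± 0.59 SE, adjusted p = 0.00505). Il17rd (Sef), a feedback inhibitor of FGF receptors, had 53.2 and 43.1 CPM in Smad2 knockout libraries, against 108 and 105 CPM in Smad3 knockout libraries (log2 fold change -1.14 ± 0.18 SE, adjusted p = 0.00299). With Fgf5 these were lower and Fgf4 was higher in Smad2 knockout. Notch receptors, ligands and targets had 0 called higher and 5 called lower of 18 (median -0.47). These calls made up 27.8% of the list. Of all tested genes 17.9% were called lower and 33.6% were called either way. Notch2 had 32.6 and 32.6 CPM in Smad2 knockout libraries, against 71.9 and 79.04 CPM in Smad3 knockout libraries (log2 fold change -1.21 ± 0.16 SE, adjusted p = 0.00194), and the ligand gene Jag1 had 8.90 and 9.62 CPM in Smad2 knockout libraries, against 19.5 and 19.5 CPM in Smad3 knockout libraries (log2 fold change -1.07 ± 0.18 SE, adjusted p = 0.0034). Hey2, a Notch-induced repressor, had 1.83 and 1.73 CPM in Smad2 knockout libraries, against 3.95 and 4.00 CPM in Smad3 knockout libraries (log2 fold change -1.16 ± 0.31 SE, adjusted p = 0.0202). Retinoic acid genes had 4 called higher and 2 called lower of 15 (median 0.42). Stra8, which retinoic acid induces at the entry to meiosis, had 6.75 and 7.45 CPM in Smad2 knockout libraries, against 0.688 and 0.642 CPM in Smad3 knockout libraries (log2 fold change 3.41 ± 0.39 SE, adjusted p = 0.00135). Crabp2, which carries retinoic acid to its receptor, had 15.8 and 15.4 CPM in Smad2 knockout libraries, against 8.84 and 9.48 CPM in Smad3 knockout libraries (log2 fold change 0.77 ± 0.20 SE, adjusted p = 0.0181), and was at -0.0080 on log2(TPM + 1).

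Mesoderm genes other than those of the streak had 3 called higher and 6 called lower of 16 tested (median -0.32). Kdr, the VEGF receptor of blood and vessel progenitors, had 0.927 and 0.576 CPM in Smad2 knockout libraries, against 13.7 and 13.9 CPM in Smad3 knockout libraries (log2 fold change -4.20 ± 0.43 SE, adjusted p = 0.00107). Pdgfra, the PDGF receptor of paraxial mesoderm and primitive endoderm, had 4.69 and 2.39 CPM in Smad2 knockout libraries, against 23.4 and 23.3 CPM in Smad3 knockout libraries (log2 fold change -2.73 ± 0.38 SE, adjusted p = 0.00199). For Kdr the Smad3 knockout libraries also lay above 4.30 and 4.75 CPM in WT day 4 libraries, while Hand1 and Bmp4 from this list were higher in Smad2 knockout. Blood and endothelial genes had 2 called higher and 2 called lower of 13, so 30.8% were called, beside 33.6% of all tested genes. Pecam1, an adhesion protein of endothelium and stem cells, had 17.03 and 32.8 CPM in Smad2 knockout libraries, against 9.84 and 11.1 CPM in Smad3 knockout libraries (log2 fold change 1.25 ± 0.30 SE, adjusted p = 0.0128). Hbb-bh1, an embryonic globin, had 95 counts over the Smad2 knockout libraries against 0 over the Smad3 knockout libraries, at least 32.01-fold higher (adjusted p = 0.0459), with 2.22 CPM in replicate 1 and 0.235 CPM in replicate 2 of Smad2 knockout.

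Stromal genes had 4 called higher and 1 called lower of 14 (median 0.58), and 8 higher and 1 lower with the length and GC offset. Calls as tested made up 35.7% of the list, near the 33.6% of all tested genes. On log2(TPM + 1) the list had 2 higher and 1 lower of 9, with a median of -0.14 beside -0.57 for all genes. Col1a2, a chain of type I collagen, had 23.6 and 22.1 CPM in Smad2 knockout libraries, against 4.95 and 5.68 CPM in Smad3 knockout libraries (log2 fold change 2.10 ± 0.24 SE, adjusted p = 0.00135). Col3a1, type III collagen, had 2.41 and 3.41 CPM in Smad2 knockout libraries, against 0.0666 and 0.148 CPM in Smad3 knockout libraries (log2 fold change 4.74 ± 0.57 SE, adjusted p = 0.00153). Postn, the matrix protein periostin, had 2.15 and 1.39 CPM in Smad2 knockout libraries, against 0.222 and 0.222 CPM in Smad3 knockout libraries (log2 fold change 2.97 ± 0.38 SE, adjusted p = 0.00173). All 3 were higher in every Smad2 knockout library, and Thy1, a surface protein of fibroblasts and T cells, was lower with 6.04 and 7.83 CPM in Smad2 knockout libraries, against 13.6 and 13.3 CPM in Smad3 knockout libraries (log2 fold change -0.95 ± 0.24 SE, adjusted p = 0.0157). Genes of the epithelial-mesenchymal transition had 3 called higher and 3 called lower of 15, and the median (-0.26) changes side with the offsets. Snai2, the repressor Slug, had 3.65 and 1.45 CPM in Smad2 knockout libraries, against 0.844 and 0.716 CPM in Smad3 knockout libraries (log2 fold change 1.70 ± 0.52 SE, adjusted p = 0.0319). Twist2 had 1.88 and 1.15 CPM in Smad2 knockout libraries, against 0.155 and 0.395 CPM in Smad3 knockout libraries (log2 fold change 2.46 ± 0.68 SE, adjusted p = 0.022), and Prrx1, a mesenchymal homeobox gene, had 0.397 and 1.05 CPM in Smad2 knockout libraries, against 0.289 and 0.148 CPM in Smad3 knockout libraries (log2 fold change 1.71 ± 0.59 SE, adjusted p = 0.0499). Cdh11, a mesenchymal cadherin, was lower, with 2.86 and 0.533 CPM in Smad2 knockout libraries, against 16.3 and 13.1 CPM in Smad3 knockout libraries (log2 fold change -3.13 ± 0.61 SE, adjusted p = 0.00612).

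Junction genes had 3 called higher and 5 called lower of 19 (median 0.026, which changes side on the TPM scales and with the length and GC offset). Tjp1, the tight junction scaffold ZO-1, had 115 and 88.8 CPM in Smad2 knockout libraries, against 397 and 364 CPM in Smad3 knockout libraries (log2 fold change -1.90 ± 0.20 SE, adjusted p = 0.00122). Ocln, occludin, had 7.36 and 6.62 CPM in Smad2 knockout libraries, against 23.5 and 20.95 CPM in Smad3 knockout libraries (log2 fold change -1.67 ± 0.23 SE, adjusted p = 0.0019). Dsg2, the desmosomal cadherin of simple epithelia, had 28.995 and 25.6 CPM in Smad2 knockout libraries, against 70.6 and 61.6 CPM in Smad3 knockout libraries (log2 fold change -1.28 ± 0.19 SE, adjusted p = 0.00267). F11r, a junctional adhesion molecule, was higher, with 108 and 113 CPM in Smad2 knockout libraries, against 78.9 and 77.1 CPM in Smad3 knockout libraries (log2 fold change 0.50 ± 0.14 SE, adjusted p = 0.027). Neuroectoderm genes had 2 called higher and 3 called lower of 18 (median 0.16, under the all-gene median with the length and GC offset). Calls made up 27.8% of this list, beside 33.6% of all tested genes. Nes, the neural progenitor filament nestin, had 39.7 and 39.6 CPM in Smad2 knockout libraries, against 118 and 118 CPM in Smad3 knockout libraries (log2 fold change -1.58 ± 0.18 SE, adjusted p = 0.00135). Tubb3, a neuronal tubulin, had 25.1 and 26.95 CPM in Smad2 knockout libraries, against 3.62 and 4.42 CPM in Smad3 knockout libraries (log2 fold change 2.70 ± 0.49 SE, adjusted p = 0.00458), and WT day 0 libraries had 57.1 and 72.2 CPM. Neurod1, a neuronal helix-loop-helix factor, had 0.768 and 0.619 CPM in Smad2 knockout libraries, against 2.98 and 2.25 CPM in Smad3 knockout libraries (log2 fold change -1.91 ± 0.35 SE, adjusted p = 0.00499). Pax6, of eye and forebrain, had 0.503 and 0.683 CPM in Smad2 knockout libraries, against 1.73 and 1.09 CPM in Smad3 knockout libraries (log2 fold change -1.24 ± 0.38 SE, adjusted p = 0.0338).

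Ribosomal and respiratory genes were higher in Smad2 knockout. Of 33 listed ribosomal protein genes, 28 were called higher and 0 called lower (median 1.06), which falls to 13 higher and 0 lower with the length and GC offset and 2 higher and 0 lower on log2(TPM + 1). Rps3 had 4383 and 4076 CPM in Smad2 knockout libraries, against 1954 and 2009.9 CPM in Smad3 knockout libraries (log2 fold change 1.09 ± 0.19 SE, adjusted p = 0.00433). Rpl13 had 1871 and 1955 CPM in Smad2 knockout libraries, against 800.2 and 875 CPM in Smad3 knockout libraries (log2 fold change 1.19 ± 0.24 SE, adjusted p = 0.00639), and Rps14 had 2754 and 2312 CPM in Smad2 knockout libraries, against 884 and 944 CPM in Smad3 knockout libraries (log2 fold change 1.47 ± 0.29 SE, adjusted p = 0.00663). WT day 0 libraries lay above Smad2 knockout for Rpl13, with 2707 and 2126 CPM in WT day 0. Of 27 nuclear genes of the respiratory chain, 22 were called higher and 0 called lower (median 1.16), and 20 higher and 0 lower with the offset. On log2(TPM + 1) the respiratory list had 6 higher and 2 lower, with a median of 0.43 beside -0.57 for all genes. Cox4i1, Cox5a and Cox6c encode subunits of cytochrome c oxidase. Cox6c had 229 and 262 CPM in Smad2 knockout libraries, against 87.2 and 85.4 CPM in Smad3 knockout libraries (log2 fold change 1.51 ± 0.22 SE, adjusted p = 0.00247). Cox5a had 242 and 247 CPM in Smad2 knockout libraries, against 103 and 88.6 CPM in Smad3 knockout libraries (log2 fold change 1.35 ± 0.21 SE, adjusted p = 0.00298). Cox4i1 had 677 and 729.8 CPM in Smad2 knockout libraries, against 204 and 225 CPM in Smad3 knockout libraries (log2 fold change 1.71 ± 0.28 SE, adjusted p = 0.00325). Without Smad3 knockout replicate 1 the lists had 2 higher and 0 lower for ribosomal genes (median 1.07) and 7 higher and 0 lower for respiratory genes (median 1.08), where higher calls over all genes fell to 670, against 3057 with all libraries.

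DNA replication genes had 11 called higher and 0 called lower of 26 (median 0.52), 19 higher and 0 lower with the length and GC offset and 4 higher and 5 lower with library totals. Gins1, part of the replicative helicase, had 42.6 and 41.7 CPM in Smad2 knockout libraries, against 16.8 and 17.4 CPM in Smad3 knockout libraries (log2 fold change 1.30 ± 0.17 SE, adjusted p = 0.00173). Rfc2, a clamp loader subunit, had 144 and 117 CPM in Smad2 knockout libraries, against 50.7 and 50.6 CPM in Smad3 knockout libraries (log2 fold change 1.37 ± 0.22 SE, adjusted p = 0.00325). Tyms, thymidylate synthase, had 75.3 and 70.6 CPM in Smad2 knockout libraries, against 36.8 and 33.6 CPM in Smad3 knockout libraries (log2 fold change 1.05 ± 0.18 SE, adjusted p = 0.00403). Mitosis genes had 7 called higher and 0 called lower of 24 as tested and 4 higher and 7 lower with library totals, and 15 higher and 0 lower with the length and GC offset, and the median (0.014) changes side on log2(TPM + 1). Calls as tested made up 29.2% of the mitosis list. Of all tested genes 15.7% were called higher and 33.6% were called either way. Cdk1, the mitotic kinase, had 329 and 293 CPM in Smad2 knockout libraries, against 141 and 135 CPM in Smad3 knockout libraries (log2 fold change 1.17 ± 0.16 SE, adjusted p = 0.00204). Its cyclin gene Ccnb2 had 210.3 and 187 CPM in Smad2 knockout libraries, against 89.02 and 91.4 CPM in Smad3 knockout libraries (log2 fold change 1.14 ± 0.15 SE, adjusted p = 0.00174). Ube2c, the ubiquitin-conjugating enzyme of the anaphase-promoting complex, had 196 and 184 CPM in Smad2 knockout libraries, against 72.3 and 83.3 CPM in Smad3 knockout libraries (log2 fold change 1.29 ± 0.17 SE, adjusted p = 0.00173).

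G1 regulators had 7 called higher and 1 called lower of 18 (median 0.26). With library totals they had 3 higher and 3 lower, with a median of -0.066 beside -0.35 for all genes. On log2(TPM + 1) they had 0 higher and 5 lower of 17, with a median of -0.36 beside -0.57 for all genes. E2f1, which drives entry into S phase, had 51.5 and 56.95 CPM in Smad2 knockout libraries, against 21.7 and 24.2 CPM in Smad3 knockout libraries (log2 fold change 1.24 ± 0.23 SE, adjusted p = 0.00512). Cdkn2b, the CDK4 inhibitor p15, had 16.6 and 7.83 CPM in Smad2 knockout libraries, against 2.82 and 4.47 CPM in Smad3 knockout libraries (log2 fold change 1.75 ± 0.39 SE, adjusted p = 0.0103). Ccne1, cyclin E1, had 105 and 90.6 CPM in Smad2 knockout libraries, against 63.2 and 59.5 CPM in Smad3 knockout libraries (log2 fold change 0.67 ± 0.16 SE, adjusted p = 0.0136), and was at -0.29 on log2(TPM + 1). Ccnd2, cyclin D2, was lower, with 13.3 and 3.35 CPM in Smad2 knockout libraries, against 33.98 and 30.97 CPM in Smad3 knockout libraries (log2 fold change -1.96 ± 0.50 SE, adjusted p = 0.0162). Targets of p53 had 4 called higher and 5 called lower of 20 as tested and 10 higher and 0 lower with the length and GC offset, where the median (-0.15 as tested) changes side. Gadd45a, a stress response gene, had 42.98 and 45.7 CPM in Smad2 knockout libraries, against 13.9 and 15.9 CPM in Smad3 knockout libraries (log2 fold change 1.57 ± 0.18 SE, adjusted p = 0.00135). Eda2r, a death receptor relative, had 28.8 and 37.5 CPM in Smad2 knockout libraries, against 78.1 and 63.6 CPM in Smad3 knockout libraries (log2 fold change -1.10 ± 0.26 SE, adjusted p = 0.0129). Btg2, an antiproliferative factor, had 72.4 and 50.4 CPM in Smad2 knockout libraries, against 102 and 94.8 CPM in Smad3 knockout libraries (log2 fold change -0.68 ± 0.19 SE, adjusted p = 0.0221), and the death receptor gene Tnfrsf10b had 48.1 and 46.9 CPM in Smad2 knockout libraries, against 71.01 and 70.6 CPM in Smad3 knockout libraries (log2 fold change -0.58 ± 0.15 SE, adjusted p = 0.016).

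Cholesterol and fatty acid synthesis genes had 8 called higher and 1 called lower of 22 (median 0.47), and 17 higher and 0 lower with the length and GC offset. With library totals the list had 3 higher and 1 lower. On log2(TPM + 1) it had 1 higher and 8 lower, with a median of -0.26 beside -0.57 for all genes. Fdps, which makes farnesyl diphosphate, had 370.1 and 292 CPM in Smad2 knockout libraries, against 109.7 and 111 CPM in Smad3 knockout libraries (log2 fold change 1.58 ± 0.20 SE, adjusted p = 0.00173). Fdft1, squalene synthase, had 182 and 150.2 CPM in Smad2 knockout libraries, against 83.6 and 84.7 CPM in Smad3 knockout libraries (log2 fold change 0.98 ± 0.16 SE, adjusted p = 0.00344), and was at -0.024 on log2(TPM + 1). Msmo1, a sterol demethylation enzyme, had 119.9 and 85.4 CPM in Smad2 knockout libraries, against 54.5 and 50.5 CPM in Smad3 knockout libraries (log2 fold change 0.97 ± 0.21 SE, adjusted p = 0.00914). Acaca, which commits carbon to fatty acids, was lower, with 39.3 and 54.5 CPM in Smad2 knockout libraries, against 73.8 and 73.6 CPM in Smad3 knockout libraries (log2 fold change -0.65 ± 0.19 SE, adjusted p = 0.0283), and was at 0.40 with the length and GC offset. Glycolysis and hypoxia genes had 1 called higher and 2 called lower of 25 as tested and 6 higher and 5 lower with that offset, and the median (0.089) changes side on log2(TPM + 1) and with the offsets. Adm, the hypoxia-induced peptide adrenomedullin, had 13.2 and 15.5 CPM in Smad2 knockout libraries, against 40.8 and 44.7 CPM in Smad3 knockout libraries (log2 fold change -1.57 ± 0.27 SE, adjusted p = 0.00409). Car9, a hypoxia-induced carbonic anhydrase, had 1.77 and 1.13 CPM in Smad2 knockout libraries, against 4.33 and 4.37 CPM in Smad3 knockout libraries (log2 fold change -1.59 ± 0.34 SE, adjusted p = 0.00861). The double knockout had 11.2 and 17.8 CPM for Adm, near Smad2 knockout. WT day 4 libraries lay lowest, with 3.59 and 5.18 CPM for Adm and 0.48 and 0.666 CPM for Car9. Over WT day 4, Adm and Car9 were called higher in Smad2 knockout (log2 fold change 1.71 and 1.33). They were also called higher in Smad3 knockout, and further so (3.285 and 2.92). These contrasts share the WT day 4 libraries. Tpi1, a glycolytic isomerase, had 1509 and 1263 CPM in Smad2 knockout libraries, against 762 and 847 CPM in Smad3 knockout libraries (log2 fold change 0.79 ± 0.23 SE, adjusted p = 0.0299), and was at -0.065 on log2(TPM + 1).

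Interferon-stimulated genes had 7 called higher and 2 called lower of 20 (median 0.56). On log2(TPM + 1) the list had 4 higher and 7 lower of 13, with a median of -0.52 beside -0.57 for all genes. With a stricter filter on counts its median was -0.11 relative to the all-gene median. Ifitm1, Ifitm2 and Ifitm3 encode membrane proteins that block virus entry, and stem cells and germ cells express them without interferon. Ifitm1 had 219 and 292 CPM in Smad2 knockout libraries, against 52.3 and 46.4 CPM in Smad3 knockout libraries (log2 fold change 2.37 ± 0.23 SE, adjusted p = 0.00103). Ifitm2 had 230.2 and 247 CPM in Smad2 knockout libraries, against 65.5 and 65.6 CPM in Smad3 knockout libraries (log2 fold change 1.86 ± 0.18 SE, adjusted p = 0.000975). Ifitm3 had 35.9 and 44.6 CPM in Smad2 knockout libraries, against 14.99 and 14.2 CPM in Smad3 knockout libraries (log2 fold change 1.46 ± 0.20 SE, adjusted p = 0.00206), and WT day 0 libraries stood above both, with 97.7 and 72.6 CPM. Rsad2, the antiviral enzyme viperin, was lower, with 0.397 and 0.32 CPM in Smad2 knockout libraries, against 2.51 and 1.75 CPM in Smad3 knockout libraries (log2 fold change -2.57 ± 0.70 SE, adjusted p = 0.0218). Antigen presentation genes had 3 called higher and 1 called lower of 17 (median 0.25, under the all-gene median with the length and GC offset). Calls made up 23.5% of this list, beside 33.6% of all tested genes. Psmb8, an immunoproteasome subunit, had 49.6 and 27.8 CPM in Smad2 knockout libraries, against 14.2 and 15.3 CPM in Smad3 knockout libraries (log2 fold change 1.39 ± 0.32 SE, adjusted p = 0.0117). Psme1 and Psme2 form the proteasome activator PA28. Psme1 had 216 and 183 CPM in Smad2 knockout libraries, against 101 and 116 CPM in Smad3 knockout libraries (log2 fold change 0.87 ± 0.18 SE, adjusted p = 0.00726; -0.022 on log2(TPM + 1)), and Psme2 had 199.8 and 137 CPM in Smad2 knockout libraries, against 84.8 and 86.6 CPM in Smad3 knockout libraries (log2 fold change 0.97 ± 0.22 SE, adjusted p = 0.0111). Nlrc5, the regulator of MHC class I, was lower, with 0.397 and 0.619 CPM in Smad2 knockout libraries, against 1.24 and 1.18 CPM in Smad3 knockout libraries (log2 fold change -1.24 ± 0.37 SE, adjusted p = 0.0304).

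Y-linked genes were nearly absent from the Smad2 knockout libraries, in a line that is male by origin. Of 5 tested, 0 were called higher and 4 called lower. Uty, a histone demethylase relative, had 0 counts over the Smad2 knockout libraries against 811 over the Smad3 knockout libraries and was at least 267-fold lower. Eif2s3y, a translation factor subunit, had 3 counts over the Smad2 knockout libraries against 2220 over the Smad3 knockout libraries (ratio of Smad3 to Smad2 knockout 732, 95% counting interval 250.1 to 3552). Ddx3y, an RNA helicase, had 0 and 0.107 CPM in Smad2 knockout libraries, against 17.5 and 11.4 CPM in Smad3 knockout libraries (log2 fold change -7.88 ± 1.29 SE, adjusted p = 0.00334). Double knockout libraries were also low, with 1.27 and 0 CPM in double knockout for Eif2s3y beside 75.5 and 50.9 CPM in WT day 4. Over tested genes with a mean of at least 5 CPM across the 10 libraries, the medians of autosomes lay between -0.10 (chromosome 12) and 0.32 (chromosome 17).

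The 12 largest rises and 12 largest falls among called genes with at least 5 CPM in the higher group include several genes already given: Uty, Eif2s3y, Ddx3y, Apob, Lhx1 and Afp fell, and H19, Dppa3, Nnat, Rhox9, Rhox6, Stra8 and Cdx2 rose. Among the other falls, Prss12, a secreted serine protease of the nervous system, had 0.265 and 0.256 CPM in Smad2 knockout libraries, against 12.3 and 12.3 CPM in Smad3 knockout libraries (log2 fold change -5.55 ± 0.37 SE, adjusted p = 0.000296). Muc13, a membrane mucin of gut-type epithelia, had 0.185 and 0.512 CPM in Smad2 knockout libraries, against 10.2 and 8.93 CPM in Smad3 knockout libraries (log2 fold change -4.73 ± 0.52 SE, adjusted p = 0.00123). Both are lower in double knockout than in WT day 4 too, with 0.955 and 0.696 CPM in double knockout beside 13.4 and 15.9 CPM in WT day 4 for Prss12.

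Another 4 falls had another pattern across the groups. Adnp, a homeobox chromatin protein, had 0.291 and 1.17 CPM in Smad2 knockout libraries, against 21.8 and 25.4 CPM in Smad3 knockout libraries (log2 fold change -4.97 ± 0.50 SE, adjusted p = 0.00103). Atp7a, a copper pump, had 0.318 and 1.52 CPM in Smad2 knockout libraries, against 26.05 and 23.3 CPM in Smad3 knockout libraries (log2 fold change -4.71 ± 0.56 SE, adjusted p = 0.00144). Zbed6, a transcriptional repressor gene that lies within another gene, had 1.27 and 1.64 CPM in Smad2 knockout libraries, against 39.99 and 41.1 CPM in Smad3 knockout libraries (log2 fold change -4.79 ± 0.51 SE, adjusted p = 0.00123). Gdap10 had 0.741 and 1.49 CPM in Smad2 knockout libraries, against 32.7 and 26.2 CPM in Smad3 knockout libraries (log2 fold change -4.70 ± 0.44 SE, adjusted p = 0.000886). All 4 were also low in WT day 0, with 2.09 and 3.42 CPM for Adnp and 0.747 and 0.105 CPM for Zbed6, and not in double knockout, with 27.01 and 26.2 CPM and 50.3 and 45.9 CPM. WT day 0 libraries shared the high ribosomal protein share with Smad2 knockout, and whether library make-up had a part in these falls was not tested.

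Among the rises, Rpgrip1, a photoreceptor cilium protein, had 86.99 and 27.7 CPM in Smad2 knockout libraries, against 1.53 and 1.56 CPM in Smad3 knockout libraries (log2 fold change 5.21 ± 0.76 SE, adjusted p = 0.00238), and WT day 0 had 174 and 43.4 CPM. Wfikkn1, a secreted inhibitor of GDF8 and GDF11, had 7.04 and 3.65 CPM in Smad2 knockout libraries, against 0.0888 and 0.296 CPM in Smad3 knockout libraries (log2 fold change 4.79 ± 0.83 SE, adjusted p = 0.00403). Ly6a, the stem cell antigen Sca-1, had 3.81 and 14.04 CPM in Smad2 knockout libraries, against 0.644 and 0.518 CPM in Smad3 knockout libraries (log2 fold change 3.93 ± 0.76 SE, adjusted p = 0.00585). In these 3 the Smad2 knockout libraries differed by nearly 2-fold or more from each other. Mylpf, a fast muscle myosin light chain, had 23.6 and 36.4 CPM in Smad2 knockout libraries, against 2.24 and 2.81 CPM in Smad3 knockout libraries (log2 fold change 3.57 ± 0.28 SE, adjusted p = 0.000584), and Fam25c had 10.5 and 11.4 CPM in Smad2 knockout libraries, against 0.822 and 0.617 CPM in Smad3 knockout libraries (log2 fold change 3.92 ± 0.55 SE, adjusted p = 0.00213). WT day 0 libraries had 36.7 and 28.4 CPM for Mylpf and 30.98 and 15.7 CPM for Fam25c, near or above the Smad2 knockout level.

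The genes that separate the single knockouts were then read in 2 contrasts that share no library with them. Of the 3057 genes called higher in Smad2 knockout, 16.1% were called higher and 10.5% lower in double knockout over WT day 4, where 10.8% and 12.3% of all genes were. Of the 3492 called lower, 9.08% were called higher and 21.99% lower there. In WT day 4 over day 0 the contrast was wider. Of the genes called higher in Smad2 knockout 2.88% were higher and 70.2% lower at day 4, and of those called lower 78.3% were higher and 2.12% lower, where 28.9% and 23.2% of all genes were. WT day 4 and day 0 libraries also differ in length dependence, and with the length and GC offset in both contrasts the day 4 shares became 5.19% higher and 63.3% lower among genes called higher, and 62.4% higher and 5.73% lower among genes called lower, beside 20.8% and 30.0% of all genes.

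WT day 4 stood between the knockouts in part of the genes. Among the 19470 tested, 892 (4.58%) were called with both Smad2 knockout libraries above and both Smad3 knockout libraries below every WT day 4 library, and 851 (4.37%) with the reverse order. Such an order is not a call against WT. Of the 20 naive pluripotency genes, 9 had the first order: Nr0b1, Zfp42, Dppa3, Prdm14, Fgf4, Tcl1, Fbxo15, Dppa5a and Tdh. Stat3 had the reverse. Over WT day 4, 11 of the 20 were called higher and 0 lower in Smad2 knockout (15.4% and 20.1% of all genes). In Smad3 knockout 0 were called either way (0.555% of all genes). Of the 15 yolk sac genes, 7 had the reverse order: Afp, Apoa1, Apoc2, Apom, Rbp4, Fgb and Fga. In the DNA replication list the first order was found in 5 of 26 genes (Rfc2, Rfc5, Gins1, Cdc45 and Tyms), in the mitosis list in 5 of 24 (Ccnb2, Cdk1, Aurka, Birc5 and Ube2c) and in the interferon list in 5 of 20 (Ifit3, Ifitm1, Ifitm2, Ifitm3 and Oas1a). Smad3 knockout over WT day 4 had 0 calls in the yolk sac, DNA replication, mitosis and interferon lists too. In the trophoblast, Rhox, keratin and surface ectoderm lists 0 genes had either order. These names follow from the count and were not picked by the rule for named genes.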

How the data were processed

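RNA-seq gene tables of 10 libraries were used: 2 each of Smad2 knockout, Smad3 knockout, double knockout and WT embryoid bodies at day 4, and of WT stem cells at day 0. The authors deposited 1 table per library. Its expected counts, per the file headers, estimate the reads of each gene and are not whole for 12.2 to 14.6% of genes per library. The TPM column was also deposited by the authors, and FPKM was left aside. HOMER, RSEM, STAR, Bowtie2, FastQC 0.11.5 and the mm10 build appear in the submitters' processing notes without a role. Symbols and positions were taken from GENCODE M21 (50604 of 53379 gene IDs matched with version, 53274 without). Strand use in counting is not stated in these sources, so overlapping and antisense genes are uncertain, as are near copies such as the Rhox, prolactin and cathepsin families.

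Rounded expected counts were fitted in edgeR 4.0.16 (R 4.3.3): TMM factors, filterByExpr (19470 genes kept), 1 quasi-likelihood fit over 5 groups with 5 residual degrees of freedom, and Benjamini-Hochberg adjustment over all genes, called under 0.05. The common biological coefficient of variation was 0.248. SE is the log2 fold change divided by the square root of F. Alternatives were limma 3.58.1 on log2(TPM + 1) and log2(TPM + 0.1) where mean TPM reached 1, DESeq2 1.42.0, other scalings and filters, a fold threshold of 1.5, offsets per library fitted as splines of length or of length and GC content, a replicate block, a term for the 2 series of table names, and leaving out each library. Genes with 3 or fewer counts in a knockout are given by counts, as a ratio with an exact 95% interval or as a bound at 3 counts, covering counting error only.

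The comparison and its 44 gene lists were chosen with earlier results of these data known. Genes were named by rule: a panel of 38, up to 3 called members per list in the direction with more calls and 1 in the other (the rule allowed 4 and 2, shortened by adjusted p for length), the 12 largest rises and 12 largest falls, and list members over 8-fold apart between the 2 libraries of a knockout. A pair of genes that this rule named is not reported here.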

Additional observations from a re-analysis of the deposited data

Results flagged for a closer look

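For 2 genes of the panel every library of one knockout lay above and every library of the other below both WT day 4 libraries. Dppa3, with a log2 fold change of 4.14 for Smad2 over Smad3 knockout, stood at 21.2 and 84.3 CPM in Smad2 knockout and 3.38 and 2.59 CPM in Smad3 knockout, on either side of 6.97 and 6.59 CPM in WT day 4 libraries. Smad3 itself, at -0.67, stood at 30.8 and 31.004 CPM in Smad2 knockout and 49.7 and 48.7 CPM in Smad3 knockout, with 42.03 and 44.9 CPM in WT day 4 libraries between them. The contrast between the knockouts is itself the test of each difference and was called for both, with adjusted p = 0.00199 for Dppa3 and 0.0133 for Smad3. Smad3 knockout over WT day 4 was not called for either gene (log2 fold change -1.18, adjusted p = 0.289 for Dppa3 and 0.18, adjusted p = 0.607 for Smad3), so an effect of its own against WT is not shown. Smad2 knockout over WT day 4 was called for both (2.96, adjusted p = 0.00393 for Dppa3 and -0.49, adjusted p = 0.0405 for Smad3), and these contrasts use the same WT libraries.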

How the results depend on the processing

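Calls between the knockouts were 3057 higher and 3492 lower in Smad2 knockout. Library totals gave 1571 higher and 5369 lower, log2(TPM + 1) 507 and 6377, log2(TPM + 0.1) 494 and 6313, and a fold threshold of 1.5 gave 994 and 1571. The length offset gave 2203 and 1387, and the length and GC offset 4470 and 2269. Leaving out 1 library gave 670 to 4474 higher and 1228 to 4305 lower calls, with both lowest values without Smad3 knockout replicate 1. With the replicate block the calls were 3203 higher and 3571 lower; libraries of the 2 knockouts with the same number deviated together with a correlation of 0.19. Over Smad2 and Smad3 knockout, WT day 4 and WT day 0 these correlations were 0.11 to 0.51, and with double knockout -0.18 to -0.035. In Smad2 and Smad3 knockout, WT day 4 and WT day 0 the replicate number was also the number of the series of table names. Both double knockout libraries belonged to series 1 of the names. The labels do not say that a replicate number or a series of names marks a batch.

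Smad2 RNA was at -0.97 with an adjusted p of 0.0566 at the fold threshold. Smad3 RNA was at -0.67 (adjusted p = 0.315) at that threshold, at 0.10 (0.658) with the length offset and -0.066 (0.693) with the length and GC offset, and -0.68 to -0.64 when 1 library was left out, with the call lost without either Smad3 knockout library.

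At an adjusted p under 0.01 for the knockout calls, shares in double knockout over WT were 18.5% higher and 12.1% lower among genes called higher, and 25.5% lower among genes called lower. Shares at WT day 4 over day 0 were 81.8% lower among genes called higher, and 89.0% higher and 1.41% lower among genes called lower. With the length and GC offset in both contrasts, chosen after seeing the data, genes called higher were 23.3% higher and 21.5% lower in double knockout, and 5.19% higher and 63.3% lower at day 4. Genes called lower were then 14.8% higher and 27.0% lower in double knockout, and 62.4% higher and 5.73% lower at day 4. Of all genes 17.6% were higher and 19.8% lower in double knockout with that offset, and 20.8% higher and 30.0% lower at day 4.

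Among the named genes some log2 fold changes changed sign, and the cause was not tested. Library totals gave -0.19 for Hoxb3, -0.11 for Hoxb4, -0.009 for Nodal and -0.22 for Rspo3. The replicate block gave -0.23 for Hoxb3, -0.049 for Hoxb4, -0.29 for Msgn1 and -0.65 for Rspo3, and the name series as a term gave -0.037 for Hoxb2, -0.39 for Hoxb3, -0.33 for Msgn1 and -0.67 for Rspo3. On log2(TPM + 1) values were -0.11 for Bmp4, -0.29 for Ccne1, -0.008 for Crabp2, -0.024 for Fdft1, -1.29 for Fgf8, -0.71 for Msx1, -0.54 for Nodal, -0.022 for Psme1, -0.78 for Rspo3, -0.70 for Smad7 and -0.065 for Tpi1. On log2(TPM + 0.1) they were -0.12 for Bmp4, -0.30 for Ccne1, -0.009 for Crabp2, -0.025 for Fdft1, -1.47 for Fgf8, -1.12 for Msx1, -0.57 for Nodal, -0.022 for Psme1, -1.95 for Rspo3, -0.78 for Smad7 and -0.065 for Tpi1. The length offset gave 0.32 for Acaca, 0.011 for Evx1, 0.076 for Lefty2, -0.24 for Msgn1 and 0.16 for Znrf3, and the length and GC offset 0.40 for Acaca, -0.075 for Fgf8, -0.026 for Hoxb3, -0.51 for Msgn1 and 0.069 for Znrf3. Leaving out 1 library moved Bmp5 over -6.75 to 0.34, Cdh5 over -0.98 to 2.95, Evx1 over -4.22 to 0.66, Fgf8 over -2.82 to 1.47, Hoxa3 over -2.58 to 2.10, Hoxb1 over -5.76 to 1.77, Hoxb2 over -3.13 to 1.64, Hoxb3 over -3.28 to 1.07, Hoxb4 over -6.40 to 1.23, Lefty2 over -0.41 to 0.23, Msgn1 over -4.72 to 1.29, Msx1 over -2.34 to 1.47, Nodal over -0.28 to 0.72, Rspo3 over -4.94 to 1.05, Sp5 over -5.28 to 0.23, T over -6.26 to 0.30, Wnt3a over -1.43 to 2.95 and Wnt8a over -2.73 to 0.33. Among the named genes that each fit tested, which were fewer with the stricter filter and with the single knockouts alone, 0 changed sign with RLE factors, no filter, a stricter filter, DESeq2, the fold threshold or the single knockouts alone. Low counts limit the placental and HOX genes.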

Other observations

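Genes of the mitochondrial genome were read apart from the nuclear respiratory genes. Chromosome medians cover tested genes with a mean of at least 5 CPM over the 10 libraries. The 15 such mitochondrial genes had a median log2 fold change of 0.56 for Smad2 over Smad3 knockout. It was 0.21 between the replicate 1 libraries and 1.11 between the replicate 2 libraries. Under the same minimum, chromosome 17 had the highest median among the autosomes at 0.32, with 0.31 and 0.30 in the 2 replicate numbers. Chromosome 12 had the lowest at -0.10. With the length and GC offset chromosome 17 was at 0.32 and the autosome medians lay between 0.17 and 0.33.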
